A study of Mus musculus with 51 samples.

Results

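The 28 genes described here are 20 enzymes of cholesterol synthesis, 5 genes that sense sterols or carry them inside the cell, and 3 genes that liver X receptors switch on when sterols are plentiful.
They were listed by their known roles, with no threshold on measured values, though with earlier results of these data known. All 28 of 28 were found among the 52636 genes of the count tables, where 52403 identifiers had a name in the GENCODE M21 annotation, and 27 of them had counts.
RNA was sequenced from cells sorted by flow cytometry from mouse mammary glands, in 51 libraries that form 17 groups of 3 biological replicates.
The mice carried D542G, a substitution in the estrogen receptor gene Esr1, or Y541S, another substitution in it, or were wild type (WT).
All animals were kept to 6 months of age and received pellets of estradiol and progesterone, and then giredestrant, an oral estrogen receptor antagonist and degrader, at 30 mg/kg daily for 4 days, or vehicle (MCT) for the same time.
The giredestrant groups covered ML (mature luminal cells), LP (luminal progenitors) and Basal cells of D542G, Y541S and WT mice, and N, a further sorted population, of D542G and Y541S mice. The vehicle groups were ML and Basal cells of D542G, Y541S and WT mice.
All groups therefore share the hormone pellets. No animals without them, no LP or N cells with vehicle and no N cells of WT mice are part of the comparison. The labels do not say how N was gated, whether the substitutions were on 1 or both alleles, or which libraries came from 1 animal.

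Cholesterol is built from acetyl-CoA. The mevalonate pathway makes isoprenoid units, these are joined into squalene, squalene is epoxidised and closed into lanosterol, and a chain of demethylations, reductions and shifts turns lanosterol into cholesterol.
When membranes of the endoplasmic reticulum are poor in cholesterol, Scap escorts the SREBP transcription factors, encoded by Srebf1 and Srebf2, to the Golgi, where they are cut and released to switch on these enzymes, and when cholesterol is plentiful Insig1 holds Scap back.
Oxysterols activate liver X receptors, which switch on the exporters Abca1 and Abcg1 and the ubiquitin ligase Mylip, which removes lipoprotein receptors. The mammary epithelium draws on the same pathway for membranes of dividing cells and for milk fat.

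SREBP binds sterol regulatory elements, often beside a CCAAT box bound by NF-Y, in the promoters of this pathway, so the promoters of 4 members that the results turn on are shown here. They are Hmgcs1, Msmo1 and Srebf2, in whose windows the core of that element was found, and Cyp51, which had the largest giredestrant fall in WT ML cells.
Sequences are the 250 bases before the annotated start, from the RefSeq table on GRCm38.p6, 5′ to 3′ on the strand of the gene. Capitals mark the core, searched as TCACNCCAC or TCACNCCAT, and the CCAAT box, both searched on both strands. Positions count back from −1, the base before the start.
The Hmgcs1 window is chr13:119690101-119690350 on the plus strand, with the core at −137 and 3 CCAAT boxes. The Msmo1 window is chr8:64733579-64733828 on the minus strand, with the core at −177 and 3 CCAAT boxes. The Srebf2 window is chr15:82147019-82147268 on the plus strand, with the core at −162 and 1 CCAAT box. The Cyp51 window is chr5:4104698-4104947 on the minus strand, with no core and 1 CCAAT box at −29.
Hmgcs1: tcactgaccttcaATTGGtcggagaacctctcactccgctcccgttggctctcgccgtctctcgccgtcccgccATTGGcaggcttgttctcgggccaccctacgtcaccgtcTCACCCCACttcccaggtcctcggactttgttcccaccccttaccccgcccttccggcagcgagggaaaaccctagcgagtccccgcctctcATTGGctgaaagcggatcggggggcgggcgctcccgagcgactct
Msmo1: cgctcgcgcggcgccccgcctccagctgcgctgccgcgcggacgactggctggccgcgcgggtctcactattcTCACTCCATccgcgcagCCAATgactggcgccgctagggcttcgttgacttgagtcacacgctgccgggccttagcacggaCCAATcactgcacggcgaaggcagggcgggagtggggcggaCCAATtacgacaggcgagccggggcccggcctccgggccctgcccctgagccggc
Srebf2: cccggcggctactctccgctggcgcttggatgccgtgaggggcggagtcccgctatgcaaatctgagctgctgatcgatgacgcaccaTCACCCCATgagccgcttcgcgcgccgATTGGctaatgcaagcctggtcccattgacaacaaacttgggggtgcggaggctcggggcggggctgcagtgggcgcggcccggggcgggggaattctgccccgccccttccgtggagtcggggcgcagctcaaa
Cyp51: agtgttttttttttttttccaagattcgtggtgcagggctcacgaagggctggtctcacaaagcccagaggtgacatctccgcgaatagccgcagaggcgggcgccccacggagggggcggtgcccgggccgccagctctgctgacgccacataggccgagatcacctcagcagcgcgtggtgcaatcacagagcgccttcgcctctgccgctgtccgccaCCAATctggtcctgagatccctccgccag

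The table held windows of 250 bases before and 50 after the start for 23 of the 28 members. The core was found in 3 of these 23, against 2.27% of the 27025 genes in the table. The CCAAT box was found in 20 of 23, against 41.1% of genes. No core overlapped a CCAAT box. A match describes letters in a window, and no match says only that these letters are not in it.

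Libraries held 21.4 to 60.1 M counts (median 32.9). Those of Y541S with giredestrant held 39.3 to 60.1 M, except ML number 1 (21.4 M). Libraries of the other groups held 24.5 to 36.4 M, except D542G vehicle Basal number 3 (49.6 M). Depth thus differed with genotype and treatment, and its part in the Y541S results was not tested. Levels are CPM (counts per 1000000 counts of a library) with TMM scaling over all 51 libraries. They are not divided by length, so they are compared between groups and not between genes. A ± is the SD of 3 libraries after a level and the standard error after a log2 ratio, and a member was called at an edgeR adjusted p under 0.05.
Markers set Basal libraries apart from the luminal ones. The summed level of 8 basal markers was 25186 to 42666 CPM in WT giredestrant Basal libraries, and 403 to 727 CPM in WT giredestrant LP and 134 to 369 CPM in WT giredestrant ML libraries.
LP and ML stood close together. WT giredestrant LP libraries differed from ML libraries of the same genotype and treatment in 1.28% of 18889 genes tested, and 0 of 5 tested LP markers and 0 of 9 ML markers were called between them. The summed LP markers were 3153 to 3469 CPM in LP and 1199 to 3606 CPM in ML libraries of that group.
In D542G with giredestrant the LP markers had sums of 2557 to 3186 CPM in LP and 3039.7 to 4880.0 CPM in ML libraries, and the mature luminal markers sums of 6956 to 7679 CPM in LP and 6549 to 7461 CPM in ML libraries. In Y541S with giredestrant the LP markers had sums of 1778 to 3190.1 CPM in LP and 1167 to 2423 CPM in ML libraries. The LP marker sums of libraries labelled LP and ML therefore overlapped in each of the 3 genotypes, and LP and ML below mean the labels. Mature luminal markers had sums of 3509 to 6460.4 CPM in LP and 6705 to 8085 CPM in ML libraries of WT with giredestrant.
Several groups stood apart in markers of other cells. Y541S giredestrant ML libraries 1, 2 and 3 had summed milk markers of 20779.9, 8463 and 3569.6 CPM, so counts of called genes that use this group are also given without numbers 1 and 2, which leaves number 3 alone in its arm, with its spread assumed to be like that of the other groups in the fit. Y541S giredestrant LP libraries had summed fibroblast markers of 4141 to 12876 CPM, against 240.2 to 487 CPM in WT giredestrant LP libraries. Adipocyte markers had sums of under 5 CPM in every library. Csn3, in both the LP and the milk list, had a count of 0 in every library.

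Mvd, the decarboxylase that ends the mevalonate steps, had a count of 0 in all 51 libraries. It lies wholly inside the span of the annotated gene Gm20388, so its level is not known from these tables. It entered no test, and the other 27 members entered every test.
Exons of Fdps, Lss and Hmgcs1 are overlapped by other annotated genes over 79.6%, 68.5% and 46.6% of their length, and the library kit does not mark strand, so their levels are uncertain. Fdps and Idi1 were also low, at most 2.06 and 1.97 CPM in their highest group.

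Across the 17 groups, WT vehicle ML cells had the highest mean of all for 13 of the 27 members with counts and the lowest for 2.
Those 13 included the squalene and lanosterol enzymes Fdft1, Sqle and Lss, the demethylases Cyp51 and Msmo1, the isomerase Ebp, and both Srebf1 and Srebf2. WT giredestrant Basal cells were lowest for 7 members, among them Hmgcs1, Sqle and Msmo1.
Msmo1, which starts the removal of the methyl groups left after the Cyp51 step, spanned 7.92-fold between its highest and lowest group means, 127 ± 19.9 CPM in WT vehicle ML and 16.1 ± 9.17 CPM in WT giredestrant Basal cells.
Cyp51, the lanosterol demethylase, spanned 3.90-fold, and both ends lay in WT ML cells, 52.7 ± 13.5 CPM with giredestrant and 206 ± 27.7 CPM with vehicle.
The widest range was that of the exporter Abcg1, 19.3-fold, with 53.9 ± 5.95 CPM in WT giredestrant ML and 2.80 ± 1.64 CPM in D542G vehicle Basal cells. The narrowest was that of Ggps1, which makes the prenyl donor of a side branch, at 1.67-fold.
The luminal highs were not shared by all. Stard4, a sterol carrier, was lowest in WT vehicle ML cells (4.49 ± 1.98 CPM) and highest in D542G vehicle ML cells (12.5 ± 0.0447 CPM). Lbr, a sterol reductase that is also a protein of the inner nuclear membrane, was lowest in WT vehicle ML cells too (102 ± 15.6 CPM).

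**Figure D1:**
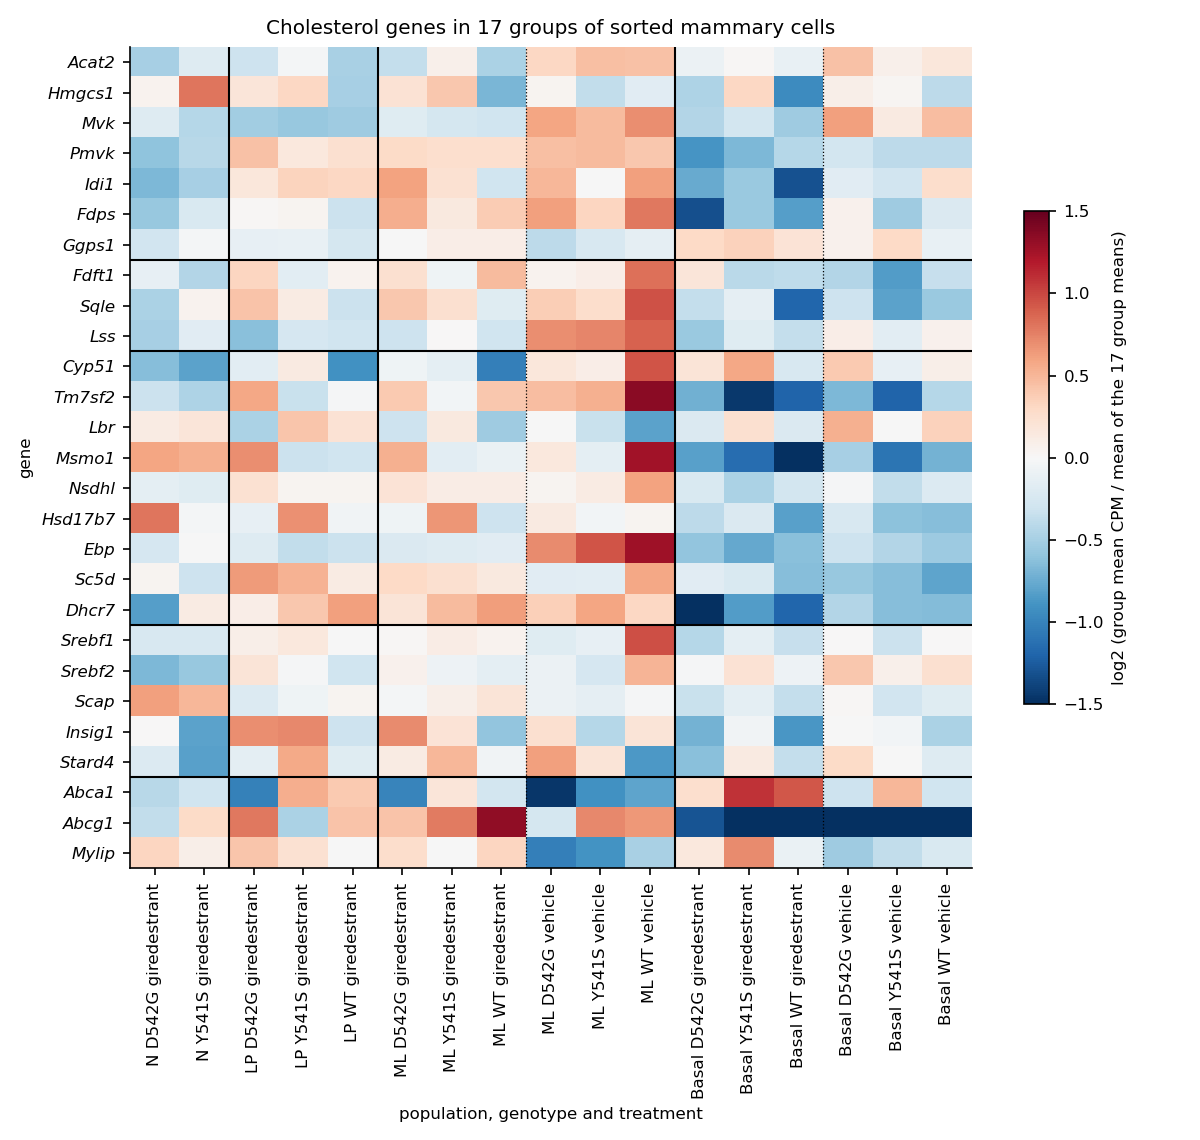
Heat map of the 27 members with counts (rows, by role) in the 17 groups (columns). Colour is the log2 of the group mean over the mean of the 17 group means, limited at 1.5 in either direction. WT vehicle ML cells were highest for 13 members, and the WT giredestrant Basal column was lowest for 7.

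In WT ML cells giredestrant lowered much of the pathway. Of 27 members tested, 13 fell and 1 rose, where 17.1% of the 17181 genes tested were called higher and 17% lower. The median log2 ratio was −0.53 over the 27 tested members and 0.08 over all genes tested.
By role, 2 of 7 mevalonate genes, 2 of 3 squalene and lanosterol genes, 6 of 9 genes from lanosterol to cholesterol and 3 of 5 sensing genes fell. The 1 member that rose, Mylip, is a liver X receptor target.
In RNA of sorted cells, fewer cells of a type within the gate and less RNA per cell cannot be told apart.

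Cyp51 (chromosome 5, 4081145 to 4104746) had the largest fall. It was at 46.8, 43.1 and 68.1 CPM in WT giredestrant ML libraries, against 237, 194 and 186 CPM in WT vehicle ML libraries (log2 ratio −1.99 ± 0.25, edgeR adjusted p = 3.01e-05). The giredestrant libraries all lay below the vehicle libraries.
Msmo1 (chromosome 8, 64718139 to 64733792), whose enzyme acts later on the sterol ring, was at 33.8, 52.5 and 62.4 CPM with giredestrant, against 131, 145 and 106 CPM with vehicle (log2 ratio −1.39 ± 0.27, edgeR adjusted p = 0.00102).
Ebp, the sterol isomerase, was at 86.5, 87.96 and 107 CPM with giredestrant, against 237, 270.2 and 256 CPM with vehicle (log2 ratio −1.47 ± 0.15, edgeR adjusted p = 7.95e-06). Neither gene's groups overlapped.
Tm7sf2, a sterol reductase, was at 4.76, 6.28 and 7.71 CPM with giredestrant, against 11.4, 10.2 and 14.8 CPM with vehicle (log2 ratio −0.98 ± 0.33, edgeR adjusted p = 0.0301). Nsdhl and Sc5d, a dehydrogenase and a desaturase of the same stretch, fell less, by 0.53 and 0.46 on the log2 scale.
The other 3 genes of this stretch were not called, with log2 ratios of 0.24 for Lbr, −0.37 for the ketoreductase Hsd17b7 and 0.29 for Dhcr7, the reductase of the last step.

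Before lanosterol, Sqle, the squalene epoxidase and a control point of the pathway, was at 84.5, 97.2 and 149.8 CPM with giredestrant, against 268, 258 and 205 CPM with vehicle (log2 ratio −1.16 ± 0.22, edgeR adjusted p = 0.000972). Lss, which closes the epoxide into lanosterol, was at 9.77, 8.31 and 13.5 CPM with giredestrant, against 28.9, 23.01 and 19.9 CPM with vehicle (log2 ratio −1.21 ± 0.23, edgeR adjusted p = 0.000814). The groups did not overlap for either gene.
Mvk, the mevalonate kinase, was at 10.8, 11.1 and 15.99 CPM with giredestrant, against 34.5, 17.4 and 23.7 CPM with vehicle (log2 ratio −1.02 ± 0.27, edgeR adjusted p = 0.00771). Acat2, which joins acetyl-CoA units in the cytosol, fell by 0.93 on the log2 scale.
Hmgcs1, the synthase of the next step, was at 24.9, 28.04 and 30.3 CPM with giredestrant, against 52.05, 40.2 and 26.9 CPM with vehicle, and did not pass (log2 ratio −0.55 ± 0.21, edgeR adjusted p = 0.0502). Idi1, the isomerase of the isoprenoid units, was at 0.526, 1.47 and 1.12 CPM with giredestrant, against 2.30, 1.87 and 1.73 CPM with vehicle, and did not pass either (log2 ratio −0.95 ± 0.37, edgeR adjusted p = 0.0607).

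Both SREBP genes fell. Srebf1 was at 219, 164 and 259 CPM with giredestrant, against 387, 418 and 403 CPM with vehicle (log2 ratio −0.94 ± 0.20, edgeR adjusted p = 0.00251). Srebf2, the SREBP most tied to cholesterol synthesis, was at 223, 238 and 272 CPM with giredestrant, against 405, 394 and 361 CPM with vehicle (log2 ratio −0.69). In neither gene did a giredestrant library reach a vehicle library.
Insig1, itself an SREBP target, was at 9.88, 15.4 and 12.6 CPM with giredestrant, against 23.2, 27.2 and 14.96 CPM with vehicle (log2 ratio −0.81), and its groups overlapped. Scap (log2 ratio 0.19) and Stard4 (0.78) were not called.
Of the liver X receptor targets, Mylip was at 25.8, 31.8 and 23.7 CPM with giredestrant, against 14.8, 17.3 and 14.6 CPM with vehicle (log2 ratio 0.77), with no overlap. Abca1 (log2 ratio 0.48) and Abcg1 (0.64) had positive ratios that did not pass.
On leaving out each library once, Acat2, Sqle, Lss, Cyp51, Msmo1, Ebp, Srebf1, Srebf2 and Mylip kept the call throughout. Mvk lost it without WT vehicle ML number 1 (adjusted p = 0.0595) and Nsdhl lost it without WT vehicle ML number 1 (adjusted p = 0.0698) and WT giredestrant ML number 2 (adjusted p = 0.0564). Tm7sf2 lost it in 4 of these omissions (highest adjusted p = 0.121), Sc5d in 3 (0.122) and Insig1 in 3 (0.124).
Marker levels differed between the same libraries. Of 9 mature luminal markers 3 fell, and their sum was 6705 to 8085 CPM with giredestrant and 8547 to 10247 CPM with vehicle. Of 8 tested milk markers 2 rose (2551 to 7045 CPM with giredestrant and 2438 to 2981 CPM with vehicle), and of 5 tested LP markers 2 rose. WT giredestrant ML libraries 1, 2 and 3 had milk sums of 5563, 7045 and 2551 CPM. Their LP sums were 2584, 3606 and 1199 CPM, against 1256 to 1753 CPM with vehicle, so number 3 stood apart from numbers 1 and 2. Without number 3, 17 members were called (14 with all libraries). The part of these markers in the result was not tested.

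**Figure D2:**
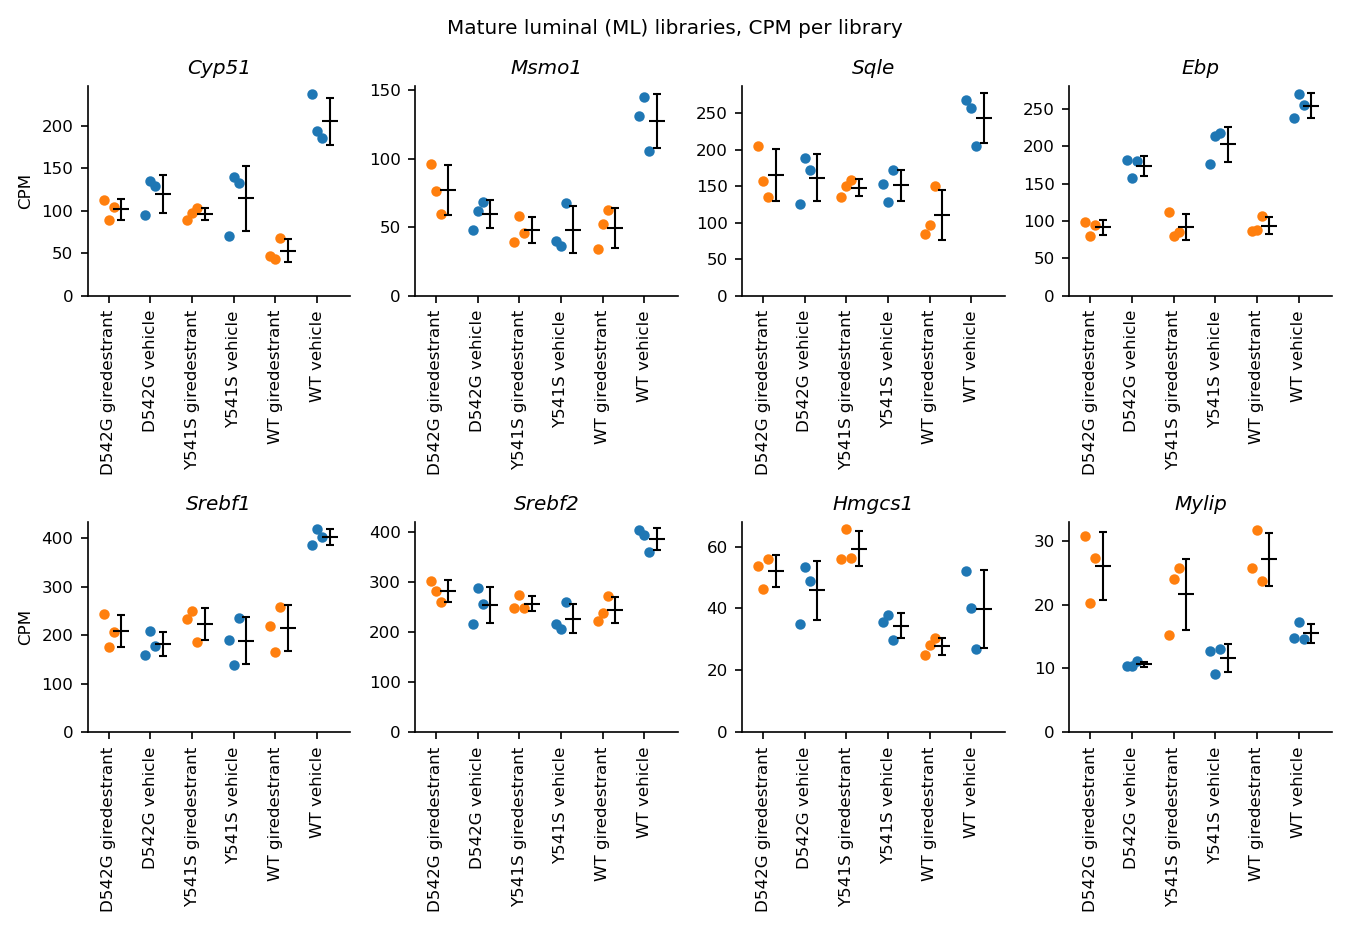
CPM of 8 members in each ML library, giredestrant (orange) left of vehicle (blue) for D542G, Y541S and WT; points are libraries and bars the mean ± SD of 3. In WT the giredestrant points of Cyp51, Msmo1, Sqle, Ebp, Srebf1 and Srebf2 all lie below the vehicle points, and in the mutants only those of Ebp do so in both.

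In ML cells of the mutants fewer members were called with giredestrant. In D542G, 4 fell and 2 rose, where 9.34% of the 17181 genes tested were called higher and 11.3% lower, and the median log2 ratio was −0.01 over the 27 tested members and 0.05 over all genes tested. In Y541S, 3 fell and 3 rose, where 12% of the 17181 genes tested were called higher and 13% lower, and the median was −0.03 over the 27 tested members and 0.02 over all genes tested. This made 7.41% of the tested members higher and 14.8% lower in D542G. In Y541S it made 11.1% higher and 11.1% lower. Both lay near the shares over all genes tested.
Ebp, Lss and Mvk were called lower and Mylip higher in each of the 3 genotypes, whose libraries are separate. Neither mutant had a call for Cyp51, Msmo1, Sqle, Srebf1 or Srebf2.
Ebp was at 98.4, 80.3 and 95.01 CPM in D542G giredestrant ML libraries, against 182, 158 and 179.8 CPM in D542G vehicle ML libraries (log2 ratio −0.99 ± 0.15, edgeR adjusted p = 0.00123). In Y541S it was at 112, 79.4 and 85.5 CPM with giredestrant, against 176, 214 and 218 CPM with vehicle (log2 ratio −1.22 ± 0.15, edgeR adjusted p = 0.000204). The groups were separate in both mutants.
Lss was at 9.63, 9.58 and 12.1 CPM in D542G with giredestrant, against 16.9, 24.7 and 21.3 CPM with vehicle (log2 ratio −1.07 ± 0.22, edgeR adjusted p = 0.00575). In Y541S it was at 15.7, 12.1 and 11.3 CPM with giredestrant, against 21.1, 19.1 and 24.2 CPM with vehicle (log2 ratio −0.80 ± 0.22, edgeR adjusted p = 0.0163). No library crossed over for Lss.
Mvk was at 15.3, 12.8 and 12.8 CPM in D542G with giredestrant, against 21.6, 28.3 and 20.4 CPM with vehicle (log2 ratio −0.84 ± 0.26, edgeR adjusted p = 0.0353). In Y541S it was at 13.3, 10.96 and 14.3 CPM with giredestrant, against 18.1, 17.4 and 28.9 CPM with vehicle (log2 ratio −0.82 ± 0.26, edgeR adjusted p = 0.0339). The Mvk groups were apart in both.

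Mylip, the ligase that removes lipoprotein receptors, was at 30.8, 20.2 and 27.3 CPM in D542G with giredestrant, against 10.4, 10.4 and 11.1 CPM with vehicle (log2 ratio 1.23 ± 0.21, edgeR adjusted p = 0.0019). In Y541S it was at 15.2, 23.96 and 25.7 CPM with giredestrant, against 12.8, 9.15 and 13.01 CPM with vehicle (log2 ratio 0.80 ± 0.20, edgeR adjusted p = 0.0104). All giredestrant libraries were above all vehicle libraries.
In D542G, Acat2 fell (log2 ratio −0.73 ± 0.21, edgeR adjusted p = 0.0229) and Ggps1, the enzyme of the prenyl branch, rose slightly (0.33 ± 0.11, edgeR adjusted p = 0.0451).
In Y541S, Abca1, the exporter that loads cholesterol onto lipoproteins, was at 128, 143 and 62.2 CPM with giredestrant, against 71.7, 27.4 and 57.4 CPM with vehicle (log2 ratio 1.005 ± 0.35, edgeR adjusted p = 0.0447), and its groups overlapped. Hmgcs1 was at 56.01, 65.8 and 56.2 CPM with giredestrant, against 35.6, 37.9 and 29.8 CPM with vehicle (log2 ratio 0.70 ± 0.20, edgeR adjusted p = 0.0221), with the groups apart.
In D542G, Hmgcs1 was at 53.8, 46.3 and 56.03 CPM with giredestrant, against 35.1, 53.5 and 48.99 CPM with vehicle, a ratio that did not pass (log2 ratio 0.12).
In D542G, across fits that each left out 1 library, Lss, Ebp and Mylip kept the call throughout. Acat2 lost it without D542G vehicle ML number 2 (adjusted p = 0.0906) and D542G giredestrant ML number 2 (adjusted p = 0.1). Mvk lost it in 4 of these omissions (highest adjusted p = 0.156) and Ggps1 in 6 (0.148). Called members, 6 with all libraries, numbered 3 without D542G vehicle ML number 2 or D542G giredestrant ML number 2. In Y541S, under omission of single libraries, Ebp and Mylip kept the call throughout. Hmgcs1 lost it without Y541S vehicle ML number 3 (adjusted p = 0.0773) and Y541S giredestrant ML number 2 (adjusted p = 0.082). Mvk lost it in 3 of these omissions (highest adjusted p = 0.223), Lss in 3 (0.0837) and Abca1 in 4 (0.177). The count of called members, 6 with all libraries, was 2 without Y541S vehicle ML number 3 and 3 without Y541S giredestrant ML number 2. Without Y541S giredestrant ML numbers 1 and 2 together, with number 3 alone in its arm, 3 members were called in Y541S, and neither Hmgcs1 (log2 ratio 0.62 ± 0.29, edgeR adjusted p = 0.221) nor Abca1 (0.17 ± 0.44, edgeR adjusted p = 0.861) was among them.

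Markers differed between the arms of both mutants, and their part in these calls was not tested. In D542G with giredestrant the mature luminal markers had sums of 6549 to 7461 CPM, against 4229 to 4776 CPM with vehicle (1 of 9 called higher and 1 lower), and the LP markers sums of 3039.7 to 4880.0 CPM, against 1108 to 1534 CPM (2 of 5 called higher). The milk markers had sums of 7015 to 10619 CPM, against 2146 to 3790.2 CPM (4 of 8 called higher), and the endothelial markers sums of 91.6 to 159 CPM, against 41.3 to 89.3 CPM (2 of 6 called higher). The proliferation markers had sums of 137 to 199.7 CPM, against 379 to 717 CPM (7 of 8 called lower).
In Y541S all the sums given here were above vehicle with giredestrant. The milk markers had sums of 3569.6 to 20779.9 CPM, against 1701 to 2329 CPM with vehicle (7 of 8 called higher), and the basal markers sums of 286 to 734 CPM, against 124 to 209 CPM (4 of 8 called higher). The endothelial markers had sums of 94.04 to 153 CPM, against 25.9 to 38.1 CPM (6 of 6 called higher), the fibroblast markers sums of 266 to 338 CPM, against 102 to 220.4 CPM (4 of 6 called higher), and the immune markers sums of 76.7 to 219 CPM, against 30.9 to 54.2 CPM (1 of 5 called higher).

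**Figure D3:**
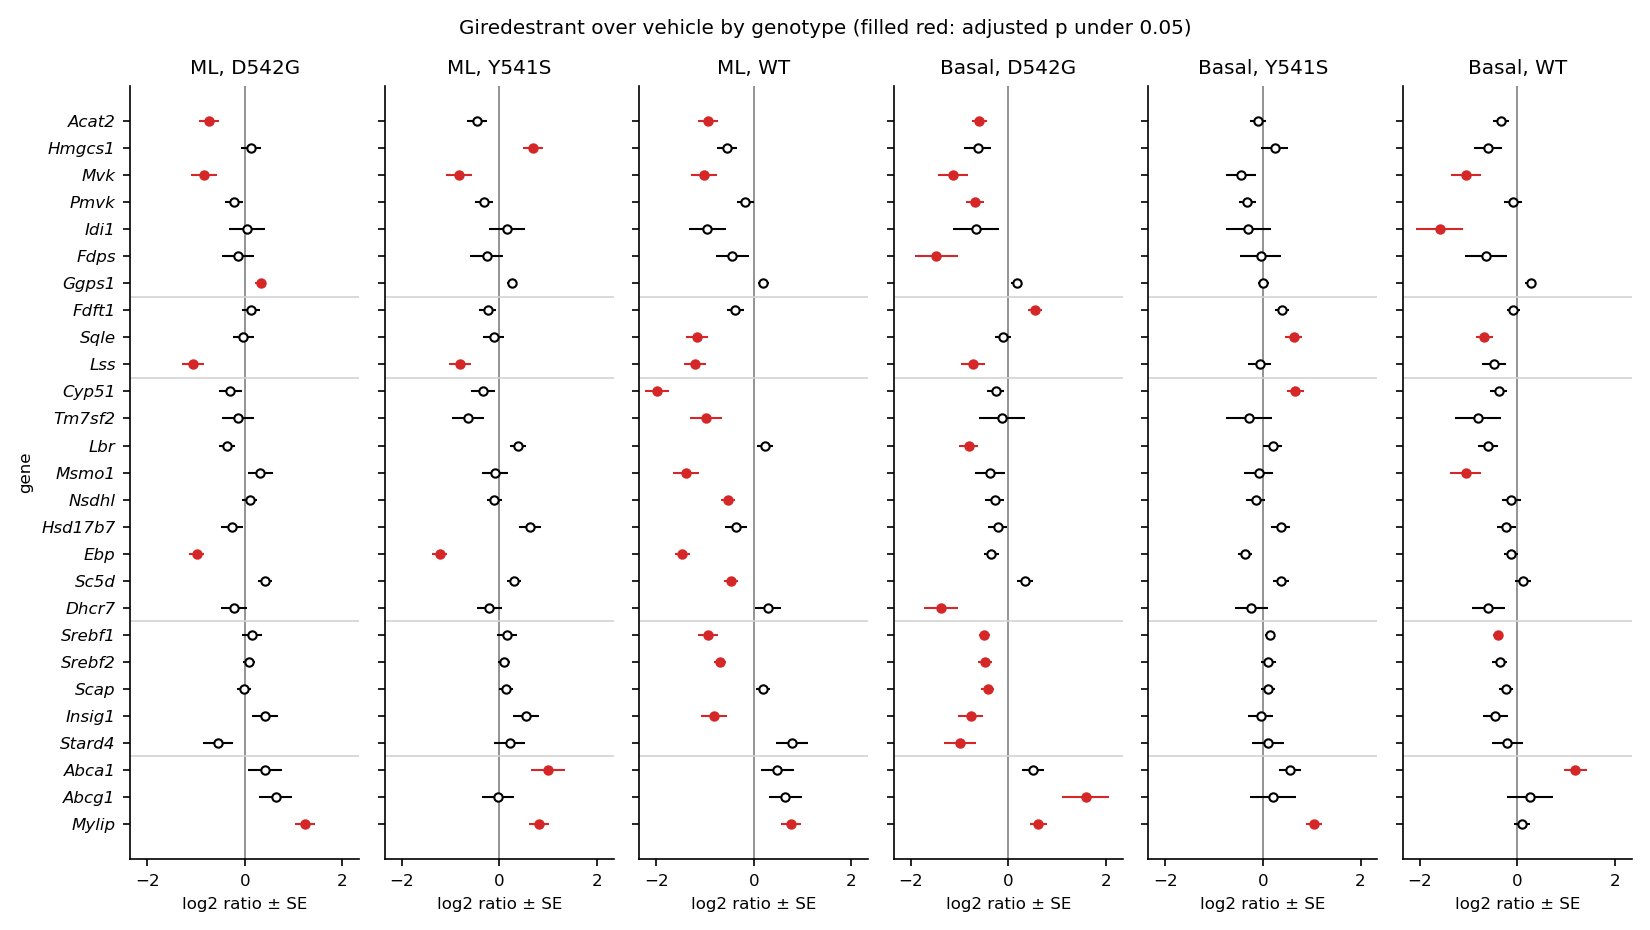
Log2 ratio of giredestrant over vehicle (± SE, x axis) for the 27 tested members (y axis) in ML and Basal cells of D542G, Y541S and WT. Filled red points have an edgeR adjusted p under 0.05. In ML cells, 4 members in D542G, 3 in Y541S and 13 in WT were called lower.

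The difference in giredestrant effect between mutant and WT ML cells was tested directly, as an interaction. For D542G it was called for 6 members and for Y541S for 6, all with a more positive effect in the mutant, where 4.18% and 3.98% of genes tested had a more positive effect and 2.39% and 1.8% a more negative one. The median difference was 0.46 over the 27 tested members and −0.03 over all genes tested for D542G, and 0.40 over the 27 tested members and −0.05 over all genes tested for Y541S. Both comparisons use the same WT libraries.
For Cyp51 the effect, as a log2 ratio, was −0.29 in D542G, −0.33 in Y541S and −1.99 in WT. The log2 difference from WT was 1.70 ± 0.34, edgeR adjusted p = 0.00929 for D542G and 1.66 ± 0.34, edgeR adjusted p = 0.0121 for Y541S.
In D542G the libraries were at 113, 88.6 and 104 CPM with giredestrant, against 94.4, 135 and 129 CPM with vehicle. In Y541S they were at 89.2, 97.03 and 103 CPM with giredestrant, against 70.2, 140.1 and 133 CPM with vehicle. All 12 of these lay between the lowest and the highest WT ML library.
For Msmo1 the effect, as a log2 ratio, was 0.32 in D542G and −1.39 in WT, a log2 difference of 1.70 ± 0.37, edgeR adjusted p = 0.0148. Its D542G libraries were at 95.7, 76.2 and 59.6 CPM with giredestrant, against 48.01, 61.6 and 68.2 CPM with vehicle. Its Y541S libraries were at 39.2, 58.4 and 45.8 CPM with giredestrant, against 40.1, 36.1 and 67.6 CPM with vehicle. The vehicle libraries of both mutants overlapped with the giredestrant libraries of WT, and the Y541S difference did not pass (log2 difference 1.29 ± 0.37, edgeR adjusted p = 0.0526).

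Both SREBP genes differed in effect in both mutants. For Srebf1 the log2 difference from WT was 1.08 ± 0.29, edgeR adjusted p = 0.0364 in D542G and 1.09 ± 0.29, edgeR adjusted p = 0.0381 in Y541S. Srebf1 was at 243, 176 and 207 CPM in D542G with giredestrant, against 158, 208 and 177 CPM with vehicle, and at 233, 249 and 186 CPM in Y541S with giredestrant, against 191, 139 and 236 CPM with vehicle. In each mutant the groups overlapped.
For Srebf2 the log2 difference was 0.78 ± 0.18, edgeR adjusted p = 0.02 in D542G and 0.78 ± 0.18, edgeR adjusted p = 0.022 in Y541S. Srebf2 was at 304, 283 and 261 CPM in D542G with giredestrant, against 217, 288 and 257 CPM with vehicle, and at 248, 275 and 249.5 CPM in Y541S with giredestrant, against 216, 207 and 259.8 CPM with vehicle. Within each mutant the Srebf2 groups overlapped too.
For Sc5d, the desaturase late in the pathway, the log2 difference was 0.87 ± 0.21, edgeR adjusted p = 0.0225 in D542G and 0.77 ± 0.21, edgeR adjusted p = 0.0425 in Y541S. For Sqle it was called in D542G (log2 difference 1.13 ± 0.31, edgeR adjusted p = 0.0404) and not in Y541S (1.05 ± 0.31, edgeR adjusted p = 0.0593).
For Hmgcs1 it was called in Y541S (log2 difference 1.24 ± 0.29, edgeR adjusted p = 0.0225) and not in D542G (0.67 ± 0.29, edgeR adjusted p = 0.18), and likewise for Insig1, with 1.36 ± 0.38, edgeR adjusted p = 0.0454 in Y541S and 1.23 ± 0.37, edgeR adjusted p = 0.0604 in D542G. Whether the mutants differ from each other in these effects was not tested.
In D542G, with each library left out in turn, Cyp51 and Msmo1 kept the call throughout. Sqle lost it in 9 of these omissions (highest adjusted p = 0.103), Sc5d in 5 (0.0697), Srebf1 in 10 (0.089) and Srebf2 in 4 (0.0618). The number of members called, 6 with all libraries, was 2 without D542G vehicle ML number 1, WT giredestrant ML number 1 or D542G giredestrant ML number 1 and 3 without WT vehicle ML number 1 or 2. In Y541S, on leaving out each library once, Cyp51 kept the call throughout. Hmgcs1 lost it in 3 of these omissions (highest adjusted p = 0.059), Sc5d in 10 (0.101), Srebf1 in 9 (0.0873), Srebf2 in 3 (0.0608) and Insig1 in 10 (0.111). Called members, 6 with all libraries, numbered 1 without WT giredestrant ML number 1, 2 without Y541S vehicle ML number 2, WT vehicle ML number 1, Y541S giredestrant ML number 2 or WT giredestrant ML number 2 and 3 without Y541S giredestrant ML number 1, WT vehicle ML number 2 or Y541S vehicle ML number 1. With number 3 alone in the Y541S giredestrant ML arm, 0 of the 6 Y541S differences passed, among them those of Cyp51 (log2 difference 1.76 ± 0.42, edgeR adjusted p = 0.0679), Hmgcs1 (1.17 ± 0.36, edgeR adjusted p = 0.14) and Insig1 (0.80 ± 0.41, edgeR adjusted p = 0.361). The markers of all 4 arms of these differences stand beside the comparisons of giredestrant with vehicle, and their part here was not tested either.

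With vehicle, ML cells of both mutants had less of several of the same members than WT. In D542G, 8 were lower and 2 higher than in WT, where 9.37% of the 17181 genes tested were called higher and 10.2% lower. In Y541S, 6 were lower and 1 higher, where 4.79% of the 17181 genes tested were called higher and 6.08% lower. The median log2 ratio was −0.23 over the 27 tested members and 0.06 over all genes tested for D542G, and −0.29 over the 27 tested members and 0.03 over all genes tested for Y541S. Both comparisons share the WT libraries, which are also the vehicle arm of the WT giredestrant comparison.
Msmo1 was at 48.01, 61.6 and 68.2 CPM in D542G and 40.1, 36.1 and 67.6 CPM in Y541S vehicle ML libraries, against 131, 145 and 106 CPM in WT. The log2 ratio was −1.07 ± 0.26, edgeR adjusted p = 0.0105 for D542G and −1.38 ± 0.27, edgeR adjusted p = 0.0055 for Y541S. No mutant library reached a WT library.
Srebf1 was at 158, 208 and 177 CPM in D542G and 191, 139 and 236 CPM in Y541S, against 387, 418 and 403 CPM in WT. The log2 ratio was −1.12 ± 0.21, edgeR adjusted p = 0.00175 for D542G and −1.06 ± 0.20, edgeR adjusted p = 0.00538 for Y541S. Srebf2 was lower too, by 0.58 in D542G and 0.73 in Y541S on the log2 scale.
Cyp51 was lower than in WT in D542G (log2 ratio −0.75 ± 0.24, edgeR adjusted p = 0.0361) and in Y541S (−0.81 ± 0.24, edgeR adjusted p = 0.0399). Sqle was at 125, 189 and 172 CPM in D542G and 153, 129 and 172 CPM in Y541S, against 268, 258 and 205 CPM in WT, with ratios that did not pass (log2 ratio −0.56 for D542G and −0.65 for Y541S).

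Fdft1, the squalene synthase, was at 23.03, 28.01 and 28.7 CPM in D542G and 23.8, 24.7 and 33.7 CPM in Y541S, against 47.2, 50.1 and 39.5 CPM in WT (log2 ratio −0.75 ± 0.18, edgeR adjusted p = 0.00974 for D542G and −0.70 ± 0.18, edgeR adjusted p = 0.0232 for Y541S).
Sc5d was at 61.9, 70.95 and 69.8 CPM in D542G and 68, 55.98 and 81.01 CPM in Y541S, against 114, 130.3 and 96.5 CPM in WT (log2 ratio −0.72 ± 0.15, edgeR adjusted p = 0.00362 for D542G and −0.70 ± 0.15, edgeR adjusted p = 0.00832 for Y541S). Both genes were lower in every mutant library than in any WT library. D542G was also lower for Nsdhl (log2 ratio −0.54) and Ebp (−0.53).
Stard4 and Lbr went the other way. Stard4, which moves cholesterol between membranes, was at 12.6, 12.5 and 12.5 CPM in D542G and 10.4, 11.5 and 6.27 CPM in Y541S, against 6.44, 4.54 and 2.48 CPM in WT (log2 ratio 1.51 ± 0.32, edgeR adjusted p = 0.00473 for D542G and 1.10 ± 0.32, edgeR adjusted p = 0.0398 for Y541S), and only the D542G libraries were clear of WT.
Lbr, the reductase of the nuclear membrane, was at 154, 196 and 178 CPM in D542G, against 113, 83.9 and 108 CPM in WT (log2 ratio 0.82 ± 0.17, edgeR adjusted p = 0.00349).
In D542G, across fits that each left out 1 library, Lbr, Sc5d, Srebf1, Srebf2 and Stard4 kept the call throughout. Fdft1 lost it without D542G vehicle ML number 1 (adjusted p = 0.0515) and Msmo1 lost it without D542G vehicle ML number 1 (adjusted p = 0.0537). Cyp51 lost it in 5 of these omissions (highest adjusted p = 0.151), Nsdhl in 4 (0.0784) and Ebp in 4 (0.0901). The count of called members, 10 with all libraries, was 5 without D542G vehicle ML number 1. In Y541S, under omission of single libraries, Msmo1, Srebf1 and Srebf2 kept the call throughout. Sc5d lost it without Y541S vehicle ML number 2 (adjusted p = 0.0522). Fdft1 lost it in 4 of these omissions (highest adjusted p = 0.107), Cyp51 in 5 (0.124) and Stard4 in 4 (0.16). The number of members called, 7 with all libraries, was 3 without Y541S vehicle ML number 2 and 4 without Y541S vehicle ML number 1.
Luminal and cell cycle markers differed in the same libraries. Of 9 mature luminal markers 7 were lower in D542G and 2 in Y541S, and their sum was 4229 to 4776 CPM in D542G and 4621 to 6346 CPM in Y541S, against 8547 to 10247 CPM in WT. Of 8 proliferation markers 8 were higher in D542G and 4 in Y541S, with sums of 379 to 717 and 329 to 398 CPM, against 96.2 to 188 CPM in WT. In Y541S the sums of milk markers (1701 to 2329 CPM, against 2438 to 2981 CPM in WT) lay below WT. So did those of endothelial markers (25.9 to 38.1 CPM, against 41.1 to 87.2 CPM in WT). The part of all these markers in the result was not tested.

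With giredestrant the called members were mostly higher in the mutants than in WT. D542G ML cells were higher than WT for 3 and lower for 0, where 1.85% of the 17181 genes tested were called higher and 0.751% lower. Y541S ML cells were higher for 4 and lower for 1, where 8.38% of the 17181 genes tested were called higher and 6.75% lower. Median log2 ratios were 0.10 over the 27 tested members and 0.02 over all genes tested for D542G, and 0.03 over the 27 tested members and −0.02 over all genes tested for Y541S.
Cyp51 was at 113, 88.6 and 104 CPM in D542G and 89.2, 97.03 and 103 CPM in Y541S giredestrant ML libraries, against 46.8, 43.1 and 68.1 CPM in WT (log2 ratio 0.94 ± 0.24, edgeR adjusted p = 0.0482 for D542G and 0.84 ± 0.24, edgeR adjusted p = 0.0284 for Y541S).
Hmgcs1 was at 53.8, 46.3 and 56.03 CPM in D542G and 56.01, 65.8 and 56.2 CPM in Y541S, against 24.9, 28.04 and 30.3 CPM in WT (log2 ratio 0.90 ± 0.21, edgeR adjusted p = 0.0323 for D542G and 1.07 ± 0.21, edgeR adjusted p = 0.00526 for Y541S). Both genes were higher in each mutant library than in any WT library.
Insig1, the brake on Scap, was at 29.4, 23.1 and 40.9 CPM in D542G, against 9.88, 15.4 and 12.6 CPM in WT (log2 ratio 1.30 ± 0.27, edgeR adjusted p = 0.0229). In Y541S it was at 26.97, 24.1 and 14.8 CPM and did not pass (log2 ratio 0.77 ± 0.27, edgeR adjusted p = 0.0598).
Y541S was higher for Hsd17b7 (65.1, 55.5 and 45.9 CPM, against 28.2, 19.7 and 37.2 CPM in WT, log2 ratio 0.94 ± 0.23, edgeR adjusted p = 0.0143) and for Lbr (181, 153 and 253 CPM, against 119.8, 119 and 128 CPM in WT, 0.66 ± 0.17, edgeR adjusted p = 0.0177). It was lower for Fdft1 (log2 ratio −0.56 ± 0.18, edgeR adjusted p = 0.0471).
In D542G, with each library left out in turn, no member kept the call throughout. Hmgcs1 lost it in 5 of these omissions (highest adjusted p = 0.117), Cyp51 in 5 (0.156) and Insig1 in 3 (0.0952). Called members, 3 with all libraries, numbered 0 without WT giredestrant ML number 1 or D542G giredestrant ML number 3 and 1 without WT giredestrant ML number 2 or 3 or D542G giredestrant ML number 1. In Y541S, on leaving out each library once, Hmgcs1 kept the call throughout. Hsd17b7 lost it without Y541S giredestrant ML number 1 (adjusted p = 0.0699) and WT giredestrant ML number 2 (adjusted p = 0.0599). Fdft1 lost it in 4 of these omissions (highest adjusted p = 0.197), Cyp51 in 5 (0.114) and Lbr in 3 (0.0643). The count of called members, 5 with all libraries, was 1 without WT giredestrant ML number 2, 2 without Y541S giredestrant ML number 1 and 3 without WT giredestrant ML number 1 or Y541S giredestrant ML number 2. Without Y541S giredestrant ML numbers 1 and 2 together, with number 3 alone in its arm, 1 member was called in Y541S, and neither Hmgcs1 (log2 ratio 1.003 ± 0.29, edgeR adjusted p = 0.125) nor Cyp51 (0.95 ± 0.34, edgeR adjusted p = 0.199) was.

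Sums of several marker lists did not overlap between mutants and WT in this arm, and their part in the member calls was not tested. In D542G the basal markers had sums of 968 to 1179 CPM, against 134 to 369 CPM in WT (2 of 8 called higher), and the endothelial markers sums of 91.6 to 159 CPM, against 42.5 to 78.6 CPM (1 of 6 called higher). The fibroblast markers had sums of 159 to 949 CPM, against 51.3 to 102 CPM (1 of 6 called higher), and the immune markers sums of 146 to 668 CPM, against 45.04 to 67.1 CPM (3 of 5 called higher).
In Y541S the sums of milk and proliferation markers overlapped with WT, and the others given here were separate. The mature luminal markers had sums of 4040.4 to 6634 CPM, against 6705 to 8085 CPM in WT (2 of 9 called lower), and the milk markers sums of 3569.6 to 20779.9 CPM, against 2551 to 7045 CPM (6 of 8 called higher). The endothelial markers had sums of 94.04 to 153 CPM, against 42.5 to 78.6 CPM (3 of 6 called higher), the fibroblast markers sums of 266 to 338 CPM, against 51.3 to 102 CPM (4 of 6 called higher), the immune markers sums of 76.7 to 219 CPM, against 45.04 to 67.1 CPM (0 of 5 called higher), and the proliferation markers sums of 281 to 457 CPM, against 75 to 286 CPM (3 of 8 called higher).

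**Figure D4:**
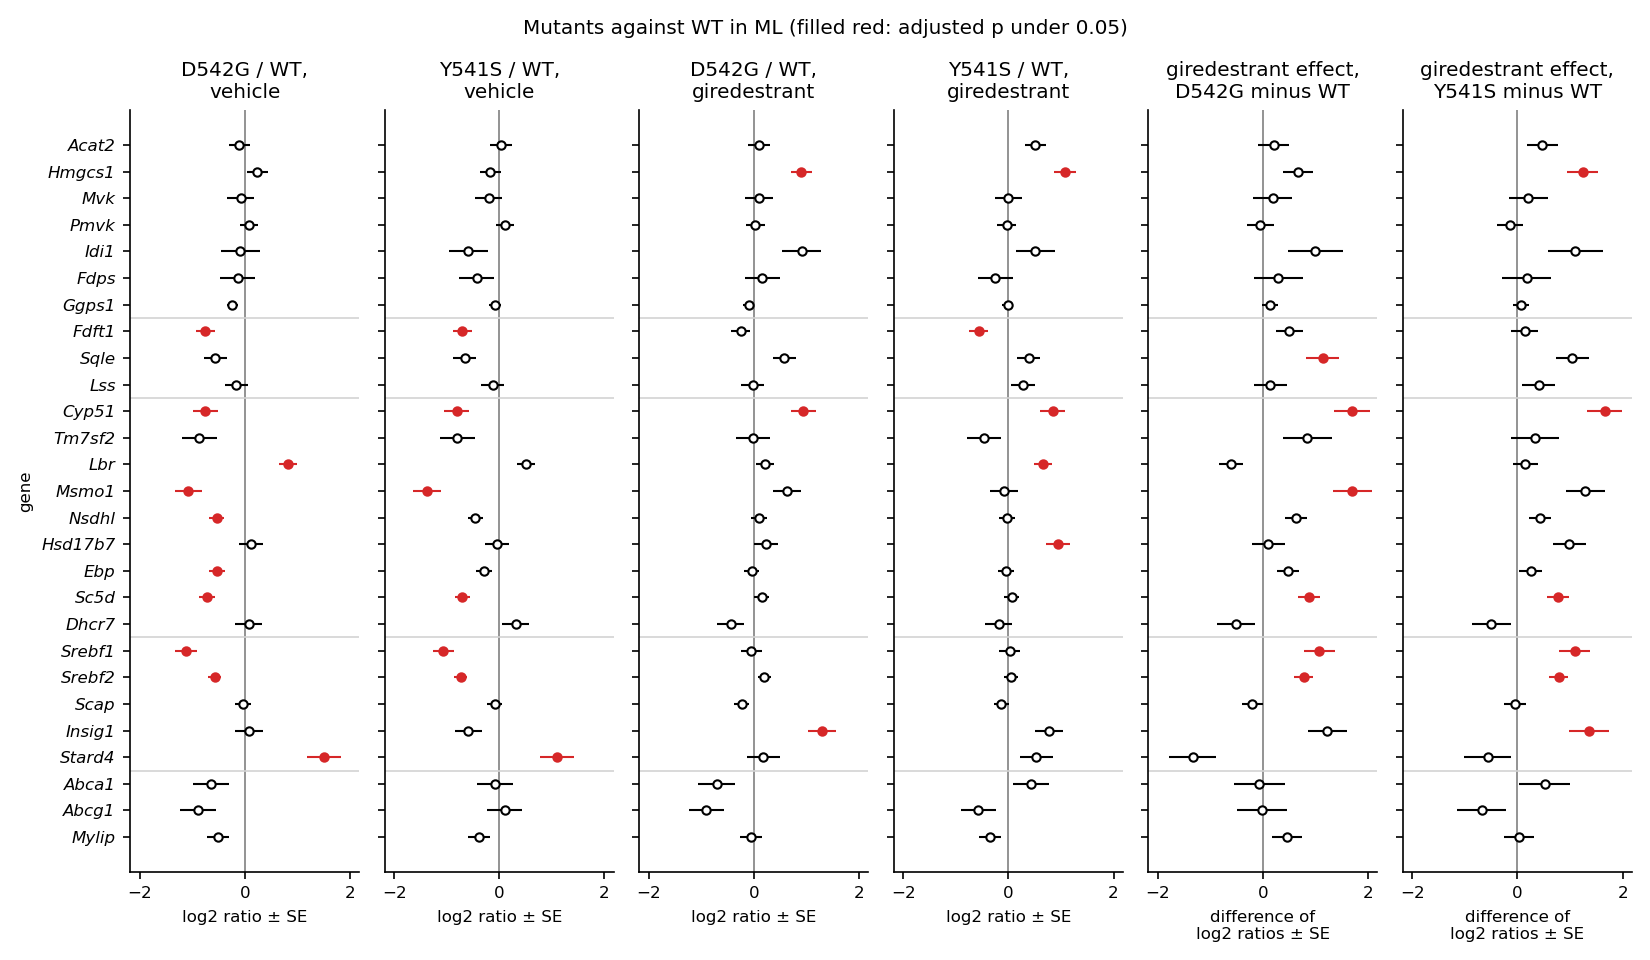
Log2 differences (± SE, x axis) of the 27 tested members (y axis) in ML cells, for each mutant over WT with giredestrant and with vehicle, and for the difference of giredestrant effects. Filled red points have an edgeR adjusted p under 0.05. All called differences of effect are to the right of 0, 6 for D542G and 6 for Y541S.

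Basal cells mostly lack the estrogen receptor in mouse mammary gland. Members also changed in them with giredestrant. The count was largest in D542G, where the share called over all genes was largest too. A direct test of the difference of effects between D542G and WT Basal cells, given below, called 0 of 27 members. In D542G Basal cells 12 fell and 3 rose, where 12.6% of the 17173 genes tested were called higher and 15.6% lower. In Y541S Basal cells 3 rose and 0 fell, where 8.15% of the 17173 genes tested were called higher and 6.96% lower. In WT Basal cells 5 fell and 1 rose, where 4.54% of the 17173 genes tested were called higher and 6.53% lower. The median log2 ratio was −0.43 over the 27 tested members and 0.00 over all genes tested for D542G, 0.11 and 0.00 for Y541S, and −0.36 and 0.02 for WT.
In D542G, all 5 sensing and transport genes fell. Srebf1 was at 176, 129.9 and 154 CPM in giredestrant Basal libraries, against 199, 219 and 200.1 CPM in vehicle Basal libraries (log2 ratio −0.49). Srebf2 was at 266, 253 and 285 CPM with giredestrant, against 338, 362 and 373 CPM with vehicle (log2 ratio −0.48). Insig1 was at 15.5, 9.13 and 10.2 CPM with giredestrant, against 16.9, 19.7 and 20.2 CPM with vehicle (log2 ratio −0.77 ± 0.26, edgeR adjusted p = 0.0382). The groups were apart for all 3 of these genes.
Stard4 was at 8.65, 3.72 and 3.54 CPM with giredestrant, against 9.47, 9.18 and 11.2 CPM with vehicle (log2 ratio −0.98 ± 0.33, edgeR adjusted p = 0.0349), and Scap had a log2 ratio of −0.43.
Of the enzymes, Dhcr7 was at 9.35, 9.39 and 12.4 CPM with giredestrant, against 21.1, 29.5 and 26.3 CPM with vehicle (log2 ratio −1.37 ± 0.35, edgeR adjusted p = 0.00997). Mvk was at 11.5, 13.3 and 9.46 CPM with giredestrant, against 21.6, 28.7 and 21.1 CPM with vehicle (log2 ratio −1.13 ± 0.31, edgeR adjusted p = 0.0142). Both had separate groups.
Lbr was at 169.9, 144 and 144 CPM with giredestrant, against 231, 291 and 247 CPM with vehicle (log2 ratio −0.82 ± 0.20, edgeR adjusted p = 0.00894). Fdps, the farnesyl diphosphate synthase, was low and fell (0.743, 0.457 and 0.232 CPM with giredestrant, against 0.879, 1.39 and 1.49 CPM with vehicle, log2 ratio −1.48 ± 0.44, edgeR adjusted p = 0.0214). Lss was at 12.01, 5.90 and 8.57 CPM with giredestrant, against 11.5, 14.6 and 15.5 CPM with vehicle (log2 ratio −0.72 ± 0.25, edgeR adjusted p = 0.0388). Pmvk and Acat2 fell with log2 ratios of −0.68 and −0.59.

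The risers in D542G Basal cells were Abcg1, Mylip and Fdft1. Abcg1, which exports cholesterol to high density lipoprotein, was at 9.21, 11.3 and 5.72 CPM with giredestrant, against 4.46, 2.75 and 1.17 CPM with vehicle (log2 ratio 1.59 ± 0.48, edgeR adjusted p = 0.0233). Mylip was at 27.5, 24.1 and 21.2 CPM with giredestrant, against 13.1, 17.3 and 14.9 CPM with vehicle (log2 ratio 0.62). Fdft1 had a log2 ratio of 0.55.
Cyp51 and Msmo1, which fell in WT ML cells, were not called here, with log2 ratios of −0.26 and −0.38.
Across fits that each left out 1 library, Dhcr7, Srebf1 and Mylip kept the call throughout. Acat2 lost it without D542G vehicle Basal number 2 (adjusted p = 0.0649) and Mvk lost it without D542G giredestrant Basal number 3 (adjusted p = 0.0501) and D542G vehicle Basal number 2 (adjusted p = 0.0711). Pmvk lost it without D542G vehicle Basal number 2 (adjusted p = 0.0748) and Fdft1 lost it without D542G vehicle Basal number 2 (adjusted p = 0.056). Lbr lost it without D542G vehicle Basal number 2 (adjusted p = 0.0512). Fdps lost it in 4 of these omissions (highest adjusted p = 0.0781), Lss in 4 (0.175), Srebf2 in 4 (0.104), Scap in 5 (0.124), Insig1 in 4 (0.16), Stard4 in 5 (0.146) and Abcg1 in 4 (0.0862). The number of members called, 15 with all libraries, was 3 without D542G vehicle Basal number 2 and 9 without D542G giredestrant Basal number 2 or 3.
Sums of several marker lists were also separate between the arms, and their part in the member calls was not tested. The proliferation markers had sums of 44.4 to 123 CPM with giredestrant, against 406 to 835 CPM with vehicle (8 of 8 called lower). The mature luminal markers had sums of 959.8 to 1949 CPM, against 318 to 611 CPM (5 of 9 called higher and 1 lower), and the LP markers sums of 168 to 576 CPM, against 50.5 to 146 CPM (5 of 5 called higher). The endothelial markers had sums of 174 to 339 CPM, against 71.4 to 101 CPM (5 of 6 called higher), the immune markers sums of 506 to 764 CPM, against 267 to 455 CPM (0 of 6 called higher), and the pericyte markers sums of 125 to 299 CPM, against 51.5 to 102 CPM (3 of 5 called higher).

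In WT Basal cells the members that fell were enzymes and Srebf1. Idi1 was at 0.471, 0.259 and 0.819 CPM with giredestrant, against 1.56, 1.93 and 1.10 CPM with vehicle (log2 ratio −1.59 ± 0.49, edgeR adjusted p = 0.0454). Msmo1 was at 11.5, 10.1 and 26.6 CPM with giredestrant, against 41.3, 26.6 and 29.6 CPM with vehicle (log2 ratio −1.06 ± 0.31, edgeR adjusted p = 0.0392), and its groups overlapped. Mvk was at 8.96, 6.15 and 17.1 CPM with giredestrant, against 27.2, 17.8 and 19.2 CPM with vehicle (log2 ratio −1.04 ± 0.31, edgeR adjusted p = 0.0406). Of these, Idi1 and Mvk had separate groups.
Sqle was at 49.1, 44.7 and 71.05 CPM with giredestrant, against 100.2, 76.5 and 78.8 CPM with vehicle (log2 ratio −0.68 ± 0.17, edgeR adjusted p = 0.0226). Srebf1 was at 158, 163 and 165 CPM with giredestrant, against 210.2, 195 and 216 CPM with vehicle (log2 ratio −0.40 ± 0.11, edgeR adjusted p = 0.0316). Neither overlapped.
Abca1 rose, at 224, 164 and 173 CPM with giredestrant, against 69.5, 89.3 and 80.3 CPM with vehicle (log2 ratio 1.19 ± 0.23, edgeR adjusted p = 0.00738).
Under omission of single libraries, Abca1 kept the call throughout. Mvk lost it in 4 of these omissions (highest adjusted p = 0.159), Idi1 in 5 (0.167), Sqle in 3 (0.097), Msmo1 in 4 (0.155) and Srebf1 in 4 (0.0951). Called members, 6 with all libraries, numbered 1 without WT giredestrant Basal number 1 or 2 or WT vehicle Basal number 1 and 2 without WT vehicle Basal number 3.
In these libraries the proliferation markers had sums of 14.3 to 368 CPM with giredestrant, against 238 to 608 CPM with vehicle (1 of 8 called lower), with overlap, and no marker list had separate sums. The part of cell division was not tested.

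In Y541S Basal cells the 3 called members rose. Sqle was at 129, 99.1 and 116 CPM with giredestrant, against 67.1, 75.5 and 73.8 CPM with vehicle (log2 ratio 0.63 ± 0.17, edgeR adjusted p = 0.0215). Cyp51 was at 203, 135 and 141 CPM with giredestrant, against 79.6, 112 and 103 CPM with vehicle (log2 ratio 0.66 ± 0.18, edgeR adjusted p = 0.0202). Mylip was at 43.4, 31.5 and 32.2 CPM with giredestrant, against 15.99, 19.6 and 15.1 CPM with vehicle (log2 ratio 1.04 ± 0.17, edgeR adjusted p = 0.00153). For all 3 the giredestrant libraries lay above the vehicle libraries.
With each library left out in turn, Mylip kept the call throughout. Sqle lost it in 4 of these omissions (highest adjusted p = 0.0812) and Cyp51 in 3 (0.0974). The count of called members, 3 with all libraries, was 1 without Y541S giredestrant Basal number 1 or Y541S vehicle Basal number 1 or 3.
Sums of luminal and stromal markers were separate here as well, and their part was not tested. The mature luminal markers had sums of 693 to 1181 CPM with giredestrant, against 364 to 682 CPM with vehicle (2 of 9 called higher), and the LP markers sums of 209.6 to 501 CPM, against 48.1 to 108 CPM (4 of 5 called higher). The endothelial markers had sums of 151 to 379 CPM, against 72.9 to 141 CPM (5 of 6 called higher), the fibroblast markers sums of 1215 to 1789 CPM, against 869 to 1139 CPM (1 of 6 called higher), and the pericyte markers sums of 152 to 235 CPM, against 67.4 to 103 CPM (2 of 5 called higher). Of the milk markers 5 of 7 rose.
The giredestrant effect differed from that in WT Basal cells for the same 3 members, where 2.75% of genes tested had a more positive effect in Y541S and 1.71% a more negative one. The log2 difference was 1.31 ± 0.24, edgeR adjusted p = 0.00868 for Sqle, 1.04 ± 0.25, edgeR adjusted p = 0.0285 for Cyp51 and 0.96 ± 0.24, edgeR adjusted p = 0.0317 for Mylip.
On leaving out each library once, Sqle kept the call throughout. Cyp51 lost it in 6 of these omissions (highest adjusted p = 0.0668) and Mylip in 7 (0.0829). The number of members called, 3 with all libraries, was 1 without WT giredestrant Basal number 1, Y541S giredestrant Basal number 1, Y541S vehicle Basal number 1 or 3 or WT vehicle Basal number 1 and 5 without WT giredestrant Basal number 3.
Between D542G and WT Basal cells, where the background was 0.629%, the difference of effects gave no call: edgeR called 0 of 27 members, 5 had an unadjusted p under 0.05, DESeq2 called 1 (Fdft1), and the lowest edgeR adjusted p was 0.113 (Fdft1).

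Set against WT directly, Basal cells of the mutants differed in few members. With giredestrant, Y541S was higher for 4 and lower for 0, where 7.59% of the 17173 genes tested were called higher and 6.36% lower. Sqle was at 129, 99.1 and 116 CPM in Y541S, against 49.1, 44.7 and 71.05 CPM in WT (log2 ratio 1.03 ± 0.17, edgeR adjusted p = 0.00195). Cyp51 was at 203, 135 and 141 CPM in Y541S, against 92.2, 81.2 and 97.7 CPM in WT (log2 ratio 0.79 ± 0.18, edgeR adjusted p = 0.00926). Hmgcs1 was at 66.3, 48.7 and 51.6 CPM in Y541S, against 19.8, 18.4 and 31.4 CPM in WT (log2 ratio 1.23 ± 0.29, edgeR adjusted p = 0.0111). These 3 enzymes stood above WT in every library.
Mylip was also higher (log2 ratio 0.78 ± 0.17, edgeR adjusted p = 0.00733). Across fits that each left out 1 library, Hmgcs1, Sqle, Cyp51 and Mylip kept the call throughout. Called members, 4 with all libraries, numbered 8 without WT giredestrant Basal number 3.
D542G with giredestrant was higher for 2 and lower for 0, where 2.53% of the 17173 genes tested were called higher and 2.44% lower. They were Sqle (108, 82.1 and 104 CPM in D542G, log2 ratio 0.81 ± 0.17, edgeR adjusted p = 0.017) and Fdft1 (28.9, 29.2 and 28.98 CPM in D542G, against 19.3, 19.98 and 19.8 CPM in WT, 0.53 ± 0.14, edgeR adjusted p = 0.036). Under omission of single libraries, no member kept the call throughout. Sqle lost it without WT giredestrant Basal number 1 (adjusted p = 0.0783) and D542G giredestrant Basal number 1 (adjusted p = 0.0535). Fdft1 lost it in 6 of these omissions (highest adjusted p = 0.11). The count of called members, 2 with all libraries, was 0 without WT giredestrant Basal number 1 or D542G giredestrant Basal number 1 and 1 without D542G giredestrant Basal number 2 or WT giredestrant Basal number 2.
Sums of luminal and other markers lay above WT in the mutants with giredestrant, with no test of their part. In D542G the mature luminal markers had sums of 959.8 to 1949 CPM, against 553 to 647 CPM in WT (3 of 9 called higher), and the immune markers sums of 506 to 764 CPM, against 231 to 328 CPM (0 of 6 called higher). In Y541S the mature luminal markers had sums of 693 to 1181 CPM, against 553 to 647 CPM in WT (2 of 9 called higher), and the milk markers sums of 3806 to 5756 CPM, against 2664 to 3287 CPM (5 of 7 called higher). There the LP markers had sums of 209.6 to 501 CPM, against 103 to 184 CPM (0 of 5 called higher), the fibroblast markers sums of 1215 to 1789 CPM, against 538 to 916 CPM (3 of 6 called higher), the immune markers sums of 352 to 676 CPM, against 231 to 328 CPM (0 of 6 called higher), and the pericyte markers sums of 152 to 235 CPM, against 101 to 127 CPM (1 of 5 called higher).
With vehicle neither mutant had a call. For D542G, where 0.0582% of all genes tested were called, edgeR called 0 of 27 members, 0 had an unadjusted p under 0.05, DESeq2 called 0, and the lowest edgeR adjusted p was 0.546 (Hsd17b7). For Y541S, where 0.157% were called, edgeR called 0 of 27 members, 4 had an unadjusted p under 0.05, DESeq2 called 4 (Ggps1, Fdft1, Srebf1, Abca1), and the lowest edgeR adjusted p was 0.0935 (Fdft1).

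LP cells, in name the progenitors of milk-secreting cells, were sequenced with giredestrant only. For D542G against WT, where 0.0302% of 16569 genes tested were called, edgeR called 0 of 27 members, 8 had an unadjusted p under 0.05, DESeq2 called 2 (Msmo1, Abca1), and the lowest edgeR adjusted p was 0.115 (Abca1). For Y541S against WT, where 3.54% were called, edgeR called 0 of 27 members, 5 had an unadjusted p under 0.05, DESeq2 called 0, and the lowest edgeR adjusted p was 0.147 (Hmgcs1).
Cyp51 was at 159, 53.6 and 75.6 CPM in D542G and 142, 111 and 99.4 CPM in Y541S LP libraries, against 46.4, 49.8 and 73.9 CPM in WT. Hmgcs1 was at 75.4, 35.02 and 41.8 CPM in D542G and 65.1, 49.4 and 51.9 CPM in Y541S, against 26.5, 33.5 and 34.9 CPM in WT. Abca1 was at 53.6, 48 and 44.2 CPM in D542G and 103, 206 and 119.6 CPM in Y541S, against 145, 104 and 139 CPM in WT. None of these passed.
Sums of fibroblast, immune and endothelial markers lay above WT in the libraries labelled LP of both mutants. In D542G those of mature luminal markers did so too, and the part of all these was not tested. The endothelial markers had sums of 61.2 to 125 CPM in D542G and 96.8 to 165 CPM in Y541S, against 18.4 to 58.3 CPM in WT. The mature luminal markers had sums of 6956 to 7679 CPM in D542G, against 3509 to 6460.4 CPM in WT, and in Y541S they overlapped with WT. In D542G the fibroblast markers had sums of 594 to 3323 CPM, against 240.2 to 487 CPM in WT (0 of 6 called higher), and the immune markers sums of 141 to 261 CPM, against 58.3 to 68.95 CPM (0 of 5 called higher). In Y541S the fibroblast markers had sums of 4141 to 12876 CPM, against 240.2 to 487 CPM in WT (6 of 6 called higher), and the immune markers sums of 128 to 183 CPM, against 58.3 to 68.95 CPM (1 of 5 called higher).

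Between sorted populations of WT mice, luminal cells held more of the pathway than Basal cells. With vehicle, 16 members were higher in ML than in Basal cells and 1 lower, where 24.8% of the 18889 genes tested were called higher and 23.4% lower. With giredestrant, 12 were higher and 2 lower, where 20.4% of the 18889 genes tested were called higher and 21.1% lower. Median log2 ratios were 0.85 over the 27 tested members and −0.03 over all genes tested with vehicle, and 0.42 over the 27 tested members and 0.01 over all genes tested with giredestrant.
Msmo1 was at 33.8, 52.5 and 62.4 CPM in ML, against 11.5, 10.1 and 26.6 CPM in Basal libraries with giredestrant (log2 ratio 1.63 ± 0.30, edgeR adjusted p = 2.68e-05), and the vehicle libraries given above had a log2 ratio of 2.03. Abcg1 was at 52.8, 48.6 and 60.3 CPM in ML, against 6.64, 6.15 and 4.25 CPM in Basal libraries with giredestrant (log2 ratio 3.25 ± 0.45, edgeR adjusted p = 1.7e-07). With vehicle it was at 28.6, 43.5 and 29.6 CPM in ML, against 3.40, 5.21 and 5.20 CPM in Basal libraries (log2 ratio 2.94 ± 0.44, edgeR adjusted p = 6.35e-07). Abcg1 was higher in every ML library than in any Basal library of either arm.
Dhcr7 was at 40.9, 51.03 and 69.3 CPM in ML, against 10.3, 9.04 and 26.3 CPM in Basal libraries with giredestrant (log2 ratio 1.83 ± 0.32, edgeR adjusted p = 1.16e-05). Tm7sf2 (log2 ratio 1.60 ± 0.40, edgeR adjusted p = 0.00121), Fdps (1.20 ± 0.40, edgeR adjusted p = 0.0134), Sqle (1.02 ± 0.23, edgeR adjusted p = 0.000415) and Fdft1 (0.87 ± 0.17, edgeR adjusted p = 9.08e-05) were also among the 8 largest differences with giredestrant. Sc5d (log2 ratio 0.79), Pmvk (0.69), Scap (0.57), Ebp (0.46) and Srebf1 (0.41) were higher by less.
The exporter Abca1 lay on the other side from Abcg1. It was at 120.3, 55.8 and 66.4 CPM in ML, against 224, 164 and 173 CPM in Basal libraries with giredestrant (log2 ratio −1.21 ± 0.30, edgeR adjusted p = 0.00107), with every ML library below every Basal library. Abca1 and Cyp51 were the members that were lower in ML with giredestrant.
With vehicle, Ebp (log2 ratio 1.87 ± 0.16, edgeR adjusted p = 1.95e-12), Tm7sf2 (1.85 ± 0.40, edgeR adjusted p = 0.000162), Sqle (1.58 ± 0.23, edgeR adjusted p = 4.05e-07), Sc5d (1.44 ± 0.18, edgeR adjusted p = 2.48e-08) and Fdft1 (1.23 ± 0.17, edgeR adjusted p = 1.94e-07) were among the 8 largest differences, and Lbr (−1.08 ± 0.23, edgeR adjusted p = 0.000131) was the 1 member that was lower. Fdps, Srebf1, Dhcr7, Lss, Nsdhl, Pmvk, Hsd17b7 and Insig1 were higher, with log2 ratios between 0.73 and 1.07.
Cyp51 took opposite sides in the 2 arms. It was lower in ML than in Basal cells with giredestrant (46.8, 43.1 and 68.1 CPM in ML, against 92.2, 81.2 and 97.7 CPM in Basal libraries, log2 ratio −0.77 ± 0.28, edgeR adjusted p = 0.0224). It was higher in ML cells with vehicle (237, 194 and 186 CPM in ML, against 139, 101 and 100.3 CPM in Basal libraries, log2 ratio 0.92 ± 0.27, edgeR adjusted p = 0.00558). The difference between the arms was not tested.
With vehicle, with each library left out in turn, Pmvk, Fdft1, Sqle, Cyp51, Tm7sf2, Lbr, Msmo1, Nsdhl, Ebp, Sc5d, Srebf1 and Abcg1 kept the call throughout. Fdps lost it in 4 of these omissions (highest adjusted p = 0.182), Lss in 3 (0.101), Hsd17b7 in 3 (0.0978), Dhcr7 in 3 (0.0996) and Insig1 in 5 (0.269). With giredestrant, on leaving out each library once, Pmvk, Fdft1, Sqle, Tm7sf2, Msmo1, Sc5d, Dhcr7, Scap, Abca1 and Abcg1 kept the call throughout. Fdps lost it without WT giredestrant Basal number 1 (adjusted p = 0.0573) and WT giredestrant Basal number 2 (adjusted p = 0.0767) and Ebp lost it without WT giredestrant ML number 3 (adjusted p = 0.0916) and WT giredestrant Basal number 2 (adjusted p = 0.154). Cyp51 lost it in 3 of these omissions (highest adjusted p = 0.121) and Srebf1 in 5 (0.244).

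For LP against ML cells of WT mice with giredestrant no member passed. Where 1.28% of all genes tested were called, edgeR called 0 of 27 members, 5 had an unadjusted p under 0.05, DESeq2 called 1 (Lbr), and the lowest edgeR adjusted p was 0.0628 (Lbr). With the replicate number as a block, since same-numbered libraries of these populations deviated together, 1 member was called, and without WT giredestrant LP number 2, 2 were.
Against Basal cells, LP cells were higher for 11 members and lower for 1, where 20% of the 18889 genes tested were called higher and 19.9% lower. Abcg1 (log2 ratio 2.37 ± 0.43, edgeR adjusted p = 2.69e-05), Dhcr7 (1.84 ± 0.32, edgeR adjusted p = 1.21e-05), Idi1 (1.64 ± 0.50, edgeR adjusted p = 0.00832) and Msmo1 (1.47 ± 0.30, edgeR adjusted p = 0.000128) had the largest differences. Abcg1 was at 22.2, 42.1 and 22.3 CPM, Dhcr7 at 53.1, 54.6 and 51.98 CPM, Idi1 at 1.18, 1.47 and 2.09 CPM and Msmo1 at 34.9, 48.1 and 47 CPM in LP libraries, each above all Basal libraries. Tm7sf2 (log2 ratio 1.20 ± 0.40, edgeR adjusted p = 0.0139), Sqle (0.91 ± 0.23, edgeR adjusted p = 0.00142), Sc5d (0.80 ± 0.18, edgeR adjusted p = 0.000457) and Hsd17b7 (0.80 ± 0.24, edgeR adjusted p = 0.00665) followed, and Pmvk (0.70), Fdft1 (0.47) and Scap (0.44) were higher by less. Ggps1 was lower (log2 ratio −0.44).
Across fits that each left out 1 library, Pmvk, Sqle, Msmo1, Hsd17b7, Sc5d, Dhcr7 and Abcg1 kept the call throughout. Idi1 lost it without WT giredestrant Basal number 2 (adjusted p = 0.076) and Ggps1 lost it without WT giredestrant LP number 1 (adjusted p = 0.0956). Scap lost it without WT giredestrant LP number 2 (adjusted p = 0.056) and WT giredestrant Basal number 2 (adjusted p = 0.285). Fdft1 lost it in 4 of these omissions (highest adjusted p = 0.209) and Tm7sf2 in 3 (0.135).

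N cells of the mutants with giredestrant had less of several members than ML and LP cells, and differed from Basal cells in both directions. Joined over both mutants (6 libraries a side), N was lower than ML for 8 members and higher for 1, where 15.7% of the 18247 genes tested were called higher and 14.2% lower. N was lower than LP for 8 and higher for 1, where 18.4% of the 18247 genes tested were called higher and 18% lower. N was lower than Basal for 4 and higher for 8, where 22.1% of the 18247 genes tested were called higher and 22.5% lower. Against Basal cells this made 29.6% of the tested members higher and 14.8% lower, near the shares over all genes. Median log2 ratios were −0.29 against ML, −0.27 against LP and 0.08 against Basal cells, and over all genes tested it was −0.01, −0.01 and −0.01. The 3 comparisons share the N libraries.
Scap, the escort of SREBP, was higher in N than in each other population. It was at 214, 288 and 213 CPM in D542G and 235, 225 and 201 CPM in Y541S N libraries, against 171, 157 and 132 CPM in D542G and 182, 186 and 131 CPM in Y541S ML libraries (log2 ratio 0.55 ± 0.10, edgeR adjusted p = 0.000266). It was at 135, 126 and 145 CPM in D542G and 139, 158 and 150.1 CPM in Y541S LP libraries (log2 ratio 0.72 ± 0.10, edgeR adjusted p = 1.1e-05 for N over LP). In Basal libraries it was at 125, 124 and 121 CPM in D542G and 135, 143 and 146 CPM in Y541S (log2 ratio 0.81 ± 0.10, edgeR adjusted p = 1.72e-06 for N over Basal). No library of another population reached an N library in the joined comparisons.
Srebf2, the factor that Scap escorts, was lower in N than in each. It was at 166, 185 and 157 CPM in D542G and 168, 152 and 229 CPM in Y541S N libraries, against 304, 283 and 261 CPM in D542G and 248, 275 and 249.5 CPM in Y541S ML libraries (log2 ratio −0.58 ± 0.12, edgeR adjusted p = 0.000979). In LP libraries it was at 378, 306 and 240.0 CPM in D542G and 263, 290.0 and 249.8 CPM in Y541S (log2 ratio −0.67 ± 0.12, edgeR adjusted p = 0.000185). In Basal libraries it was at 266, 253 and 285 CPM in D542G and 365, 261 and 319 CPM in Y541S (log2 ratio −0.70 ± 0.12, edgeR adjusted p = 8.45e-05). All N libraries were below all libraries of the other populations of the mutants with giredestrant.

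Insig1, which holds Scap back, was at 20.1, 17.2 and 20.1 CPM in D542G and 13.6, 7.70 and 11.3 CPM in Y541S N libraries, against 29.4, 23.1 and 40.9 CPM in D542G and 26.97, 24.1 and 14.8 CPM in Y541S ML libraries (log2 ratio −0.83 ± 0.25, edgeR adjusted p = 0.0182). It was also lower than in LP (log2 ratio −1.07 ± 0.26, edgeR adjusted p = 0.00249), and the libraries overlapped in both comparisons. Stard4 was lower than in ML (log2 ratio −0.79 ± 0.27, edgeR adjusted p = 0.0317), and Srebf1 lower than in LP (−0.34 ± 0.12, edgeR adjusted p = 0.0356).
Of the enzymes, Cyp51 was lower in N than in ML (log2 ratio −0.58 ± 0.20, edgeR adjusted p = 0.0359), LP (−0.69 ± 0.20, edgeR adjusted p = 0.0122) and Basal cells (−1.09 ± 0.21, edgeR adjusted p = 0.000231). It was at 66.97, 71.5 and 67.9 CPM in D542G and 63.8, 44.5 and 74.8 CPM in Y541S N libraries, and at 131, 107 and 129 CPM in D542G and 203, 135 and 141 CPM in Y541S Basal libraries.
Pmvk, the second kinase of the mevalonate pathway, was at 16.2, 15.9 and 18.7 CPM in D542G and 17.4, 13.6 and 26.6 CPM in Y541S N libraries, against 29.9, 28.1 and 35.8 CPM in D542G and 30.9, 25.8 and 34.6 CPM in Y541S ML libraries (log2 ratio −0.75 ± 0.14, edgeR adjusted p = 0.000409), and was lower than in LP by 0.77 on the log2 scale. Sqle, Sc5d and Dhcr7 were lower than in ML by 0.50, 0.38 and 0.66, and than in LP by 0.46, 0.69 and 0.57. Most of these libraries overlapped.

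Against Basal cells, Msmo1 had the largest difference. It was at 89.3, 72.02 and 78.1 CPM in D542G and 75.6, 102 and 54.1 CPM in Y541S N libraries, against 38.2, 31.7 and 20.8 CPM in D542G and 27.01, 20.8 and 24.3 CPM in Y541S Basal libraries (log2 ratio 1.56 ± 0.19, edgeR adjusted p = 1.28e-06). Abcg1 was at 13.9, 20.8 and 15.5 CPM in D542G and 35.8, 24 and 18.8 CPM in Y541S N libraries, against 9.21, 11.3 and 5.72 CPM in D542G and 7.73, 7.70 and 4.53 CPM in Y541S Basal libraries (log2 ratio 1.47 ± 0.27, edgeR adjusted p = 0.000178). Both were higher in all N libraries than in any Basal library. Dhcr7 was at 18.4, 19.1 and 21.4 CPM in D542G and 30.7, 31 and 51.8 CPM in Y541S N libraries, against 9.35, 9.39 and 12.4 CPM in D542G and 18.9, 16.3 and 23.3 CPM in Y541S Basal libraries (log2 ratio 0.96 ± 0.18, edgeR adjusted p = 0.000286), with overlap.
Ebp (log2 ratio 0.57 ± 0.13, edgeR adjusted p = 0.0012), Hsd17b7 (0.70), Tm7sf2 (0.72) and Hmgcs1 (0.52) were also higher than in Basal cells. For Hsd17b7 the libraries were apart in D542G (50.98, 66.8 and 65.9 CPM in N, against 27.1, 28.2 and 24.9 CPM in Basal). In Y541S they overlapped (33.1, 32.2 and 37.5 CPM in N, against 36.8, 27.9 and 26.2 CPM in Basal). Abca1 was lower than in Basal cells (71.98, 76.04 and 71.8 CPM in D542G and 79.9, 96.9 and 61.8 CPM in Y541S N libraries, log2 ratio −1.02 ± 0.20, edgeR adjusted p = 0.000431), as was Ggps1 (−0.46).
Between the mutants, 1 member was higher in Y541S than in D542G N cells and 1 lower, where 4.13% of the 18247 genes tested were called higher and 5% lower. Dhcr7 was higher (log2 ratio 0.96 ± 0.26, edgeR adjusted p = 0.0266). Hsd17b7 was lower, at 33.1, 32.2 and 37.5 CPM in Y541S, against 50.98, 66.8 and 65.9 CPM in D542G N libraries (log2 ratio −0.83 ± 0.24, edgeR adjusted p = 0.0362).
The N libraries of the mutants differed in markers of other cells, and the part of such markers in these results was not tested. The basal markers had sums of 2581 to 4956 CPM in Y541S, against 13631 to 16656 CPM in D542G (3 of 8 called lower). The endothelial markers had sums of 47.7 to 78.7 CPM, against 131 to 277 CPM (5 of 6 called lower), the fibroblast markers sums of 187 to 207 CPM, against 446 to 1182 CPM (1 of 6 called lower), and the immune markers sums of 31.1 to 87.7 CPM, against 166 to 238 CPM (2 of 6 called lower).
The basal markers of N libraries lay between those of Basal libraries (28282 to 47653 CPM in D542G and 26795 to 30444 CPM in Y541S) and those of ML libraries (968 to 1179 and 286 to 734 CPM). The LP markers had sums of 409 to 535 CPM in D542G and 261 to 457 CPM in Y541S N libraries, below the libraries labelled LP. Mature luminal markers had sums of 3713 to 4213 CPM in D542G and 3914 to 6034 CPM in Y541S N libraries. These lay above Basal libraries (959.8 to 1949 CPM in D542G and 693 to 1181 CPM in Y541S). They lay below ML libraries in D542G (6549 to 7461 CPM) and overlapped with them in Y541S (4040.4 to 6634 CPM).
Against ML, under omission of single libraries, Pmvk, Dhcr7, Srebf2 and Scap kept the call throughout. Sqle lost it without D542G giredestrant ML number 1 (adjusted p = 0.0612) and Insig1 lost it without D542G giredestrant ML number 3 (adjusted p = 0.0552). Cyp51 lost it in 8 of these omissions (highest adjusted p = 0.0737), Sc5d in 8 (0.118) and Stard4 in 7 (0.0863). With Y541S giredestrant ML number 3 alone in its arm, 5 members were called.
Against LP, with each library left out in turn, Pmvk, Sc5d, Srebf2, Scap and Insig1 kept the call throughout. Cyp51 lost it without D542G giredestrant LP number 1 (adjusted p = 0.0539) and Dhcr7 lost it without Y541S giredestrant LP number 3 (adjusted p = 0.0613) and D542G giredestrant LP number 3 (adjusted p = 0.06). Sqle lost it in 3 of these omissions (highest adjusted p = 0.109) and Srebf1 in 6 (0.123). Called members, 9 with all libraries, numbered 14 without Y541S giredestrant N number 3. Against Basal, on leaving out each library once, Ggps1, Cyp51, Msmo1, Hsd17b7, Ebp, Dhcr7, Srebf2, Scap, Abca1 and Abcg1 kept the call throughout. Hmgcs1 lost it in 9 of these omissions (highest adjusted p = 0.127) and Tm7sf2 in 6 (0.0878). Between the mutants, across fits that each left out 1 library, no member kept the call throughout. Hsd17b7 lost it in 4 of these omissions (highest adjusted p = 0.12) and Dhcr7 in 4 (0.123). The number of members called, 2 with all libraries, was 0 without D542G giredestrant N number 2 or 3 and 1 without D542G giredestrant N number 1 or Y541S giredestrant N number 1 or 2.

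**Figure D5:**
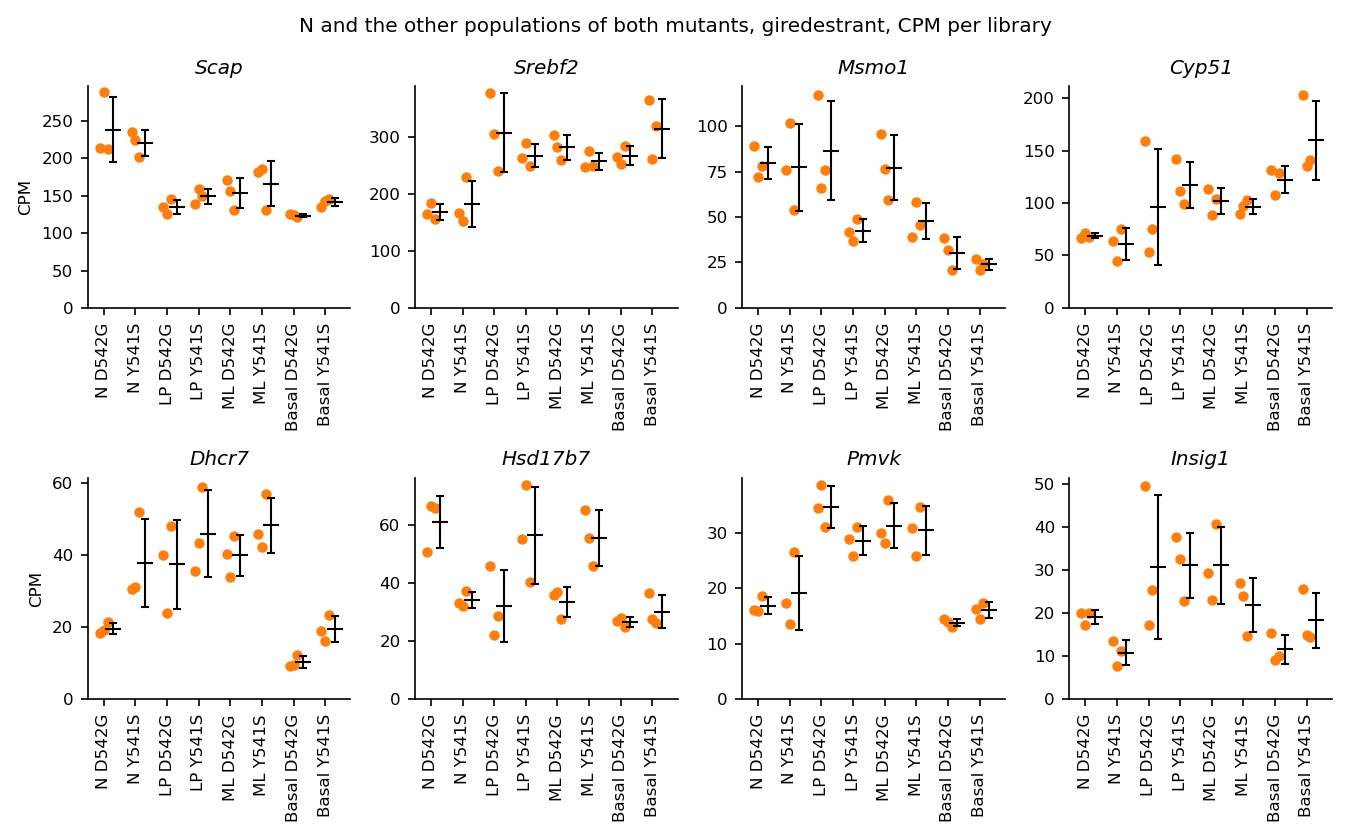
CPM of 8 members in each giredestrant library of the mutants, N left of LP, ML and Basal for D542G and Y541S; points are libraries and bars the mean ± SD of 3. Scap was highest and Srebf2 lowest in N, and Msmo1 was higher in N than in Basal libraries.

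Fatty acid synthesis, which SREBP also drives, was followed in a list of 13 genes. In WT ML cells giredestrant changed 11 of 13, with 5 up and 6 down, where 17.1% of all genes tested were called higher and 17% lower. Aacs, which activates acetoacetate in the cytosol (log2 ratio −2.31 ± 0.32), Scd2, a stearoyl desaturase (−2.27 ± 0.43), and Fasn, the fatty acid synthase (−1.75 ± 0.38), fell. Fads2, a desaturase of polyunsaturated fatty acids, rose (log2 ratio 1.70 ± 0.22).
In D542G ML cells 2 rose and 3 fell, where 9.34% of all genes tested were called higher and 11.3% lower. In Y541S 4 rose and 2 fell, where 12% of all genes tested were called higher and 13% lower. Aacs fell in both (log2 ratio −1.39 ± 0.31 in D542G and −1.16 ± 0.31 in Y541S), and Fads2 rose in both (1.09 ± 0.22 and 0.98 ± 0.22). With number 3 alone in the Y541S giredestrant ML arm, 1 of 13 rose and 0 fell in Y541S, and neither Aacs (log2 ratio −1.22 ± 0.49, edgeR adjusted p = 0.15) nor Fads2 (1.02 ± 0.30, edgeR adjusted p = 0.0591) was called.
The giredestrant effect in Y541S ML cells was more positive than in WT for 4 of 13 and more negative for 0, led by Fasn (log2 difference 1.88 ± 0.53), where 3.98% of all genes tested had a more positive effect and 1.8% a more negative one.
Fasn was at 865, 576 and 251 CPM in Y541S with giredestrant, against 496, 387 and 581 CPM with vehicle, and at 208, 131 and 248 CPM in WT with giredestrant, against 872, 502 and 572 CPM with vehicle. Y541S giredestrant numbers 1 and 2, the libraries with the most milk marker RNA, were above number 3. With number 3 alone in that arm, 0 of 13 differences were called, and that of Fasn did not pass (log2 difference 0.72 ± 0.49, edgeR adjusted p = 0.506).
The same test for D542G, where 4.18% and 2.39% of genes were called, gave 0 calls of 13 with edgeR, 5 unadjusted p under 0.05 and 1 call with DESeq2.
In Y541S Basal cells with giredestrant 5 of 13 were higher than in WT and 0 lower, where 7.59% of all genes tested were called higher and 6.36% lower, among them Scd1, another stearoyl desaturase (log2 ratio 2.19 ± 0.42), and Fasn (1.68 ± 0.23).
N cells were lower than ML for 6 of 13 and higher for 1, with Fads2 (log2 ratio −2.35 ± 0.14), Scd1 (−1.66 ± 0.27) and the desaturase Fads1 (−1.54 ± 0.14) leading, where 15.7% of all genes tested were called higher and 14.2% lower. With Y541S giredestrant ML number 3 alone in its arm, 3 were lower and 0 higher.
The median log2 ratio of the list was 0.14 in D542G, 0.39 in Y541S and −0.37 in WT ML cells with giredestrant, beside 0.05, 0.02 and 0.08 over all genes tested.

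A further list held 18 other genes of sterol sensing, transport and oxidation. In WT ML cells giredestrant lowered 8 of 18 and raised 0, where 17.1% of all genes tested were called higher and 17% lower, with a median log2 ratio of −0.44 over the list and 0.08 over all genes tested. Stard3, which moves cholesterol out of late endosomes (log2 ratio −1.97 ± 0.17), Npc2, the carrier of lysosomal cholesterol (−1.16 ± 0.17), Soat1, which esterifies cholesterol for storage (−0.93 ± 0.31), and Rxra, the partner of liver X receptors (−0.72 ± 0.21), fell most.
In D542G ML cells 4 fell and 1 rose, and in Y541S 5 fell and 2 rose. Of all genes tested 11.3% fell and 9.34% rose in D542G, and 13% fell and 12% rose in Y541S. Soat1 fell in both (log2 ratio −2.45 ± 0.33 in D542G and −1.39 ± 0.32 in Y541S), and so did Stard3 (−1.36 ± 0.17 and −1.497 ± 0.17). Lipa, the lysosomal lipase that frees cholesterol from its esters, rose in both (log2 ratio 0.99 ± 0.31 and 1.71 ± 0.32).
Ch25h, which makes an oxysterol, rose in Y541S ML cells (log2 ratio 2.88 ± 0.59). Lipa was at 203, 185 and 71.6 CPM in Y541S with giredestrant, against 38.5, 42.7 and 51.6 CPM with vehicle, with numbers 1 and 2 again above number 3. With number 3 alone in that arm, 5 of 18 fell and 0 rose. Soat1 (log2 ratio −2.25 ± 0.43, edgeR adjusted p = 0.0111) and Stard3 (−1.97 ± 0.21, edgeR adjusted p = 0.00123) were still called, and Lipa (0.61 ± 0.30, edgeR adjusted p = 0.235) and Ch25h (2.52 ± 0.75, edgeR adjusted p = 0.0604) were not.
With vehicle, 6 of 18 were lower in D542G than in WT ML cells and 0 higher, where 9.37% of all genes tested were called higher and 10.2% lower. In Y541S 1 of 18 was lower than in WT and 0 higher, where 4.79% of all genes tested were called higher and 6.08% lower.
Between populations of WT mice with vehicle, 11 of 18 were higher in ML than in Basal cells and 3 lower, where 24.8% of all genes tested were called higher and 23.4% lower, with Stard3 on the ML side (log2 ratio 3.14 ± 0.21) and Ch25h (−3.11 ± 0.51) and Cyp27a1, the mitochondrial sterol hydroxylase (−2.90 ± 0.62), on the Basal side.
N cells were higher than ML for 4 of 18 and lower for 4, where 15.7% of all genes tested were called higher and 14.2% lower. With Y541S giredestrant ML number 3 alone in its arm, 4 were higher and 1 lower. Cyp27a1 was higher in N than in ML (log2 ratio 3.52 ± 0.40), LP (3.50 ± 0.40) and Basal cells (2.24 ± 0.38), and Lipa was lower than in each (−1.58 ± 0.26, −2.55 ± 0.27 and −0.68 ± 0.26).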

How the data were processed

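RNA of 51 libraries from sorted mouse mammary cells was sequenced, and 1 table per library was deposited. Each table gives the raw count, the RPKM and the width of 52636 genes, per the file headers. The counts were made by the authors, and the submitters' processing notes name GRCm38 as the build. Neither aligner nor counter nor annotation is given in the sources used here, and the library kit does not mark strand, per the labels' protocols, so reads of overlapping or antisense genes cannot be told apart. The RPKM values deposited by the authors follow from the counts, the widths and the library totals (largest relative deviation 9.69e-13) and were not tested. For 18 of 28 members the deposited width equals the whole gene span with introns.

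Genes were named from GENCODE M21, and the 0.443% of genes without a name stayed in all fits. Counts were tested with edgeR 4.0.16 (R 4.3.3, TMM scaling, filterByExpr, quasi-likelihood F test), adjusted by Benjamini-Hochberg over all genes of a fit. ML and Basal cells were fitted with 18 libraries each and LP cells with 9, the 24 giredestrant libraries of the mutants gave the N comparisons, and all 51 gave the comparisons between WT populations. The steps were tested on simulated data first. DESeq2 1.42.0 was an alternative, and Python 3.11.15 with pandas 2.3.3 and numpy 2.4.6 made the summaries and matplotlib 3.10.9 the plots. For Mvd, a count of 0 in every library allows up to 3 counts, or 0.0499 to 0.140 CPM, for counting error only.

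Replicates of a group differed by more than sampling noise (chi-square per degree of freedom 23.7 to 308), so none was counted as 1 sample. The labels do not say whether same-numbered libraries came from 1 animal. Deviations from group means of same-numbered libraries correlated above 0.1 in 45 of 54 pairs across populations of 1 genotype and treatment (median 0.295), and in 28 of 102 pairs across groups of 1 population (median −0.002). All pairs of WT ML with Basal or LP cells passed, so these numbers were read as pairing from the data. Same-numbered Y541S giredestrant libraries passed in all pairs too (correlations 0.251 to 0.623). The reported tests between populations, those of N included, nevertheless used no block, and results with a block are given below.

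The members, the gene lists and the tests were chosen with earlier results of these data known. By rule, called members could be given in full, the first 8 by size where there were more, levels per library were kept for 10 members chosen by name and those called in 4 or more comparisons, and list genes were named only where called. Other called members are given by log2 ratio.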

Additional observations from a re-analysis of the deposited data

Results flagged for a closer look

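For 12 tests of members the response to giredestrant in ML cells differed between a mutant and WT by a test of the difference itself (edgeR adjusted p under 0.05 for the interaction), and each was a more positive response in the mutant. In D542G ML cells the log2 difference from WT was 1.70 for Cyp51, 1.70 for Msmo1, 1.13 for Sqle, 1.08 for Srebf1, 0.87 for Sc5d and 0.78 for Srebf2. In Y541S ML cells it was 1.66 for Cyp51, 1.36 for Insig1, 1.24 for Hmgcs1, 1.09 for Srebf1, 0.78 for Srebf2 and 0.77 for Sc5d. Only Cyp51 and Msmo1 in D542G and Cyp51 in Y541S kept the call when each library was left out in turn.

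In Basal cells the response differed between Y541S and WT by the same test for Sqle (log2 difference 1.31), Cyp51 (1.04) and Mylip (0.96). Of these, only Sqle kept the call in all such omissions. The 2 ML differences share the WT libraries of both arms. The vehicle libraries of the mutants enter with a minus sign, so a lower vehicle level in a mutant raises the difference, and the levels of both arms stand in the report.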

How the results depend on the processing

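Each count of called members was recomputed with another scaling, without the low count filter, with another set of libraries in the fit, with the replicate number as a block, with DESeq2 and with each library left out. No called member changed sign under any of these. With the size factors of RLE all 28 counts stayed within 1.5 times the reported ones. The causes of the changes below were not tested.

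DESeq2 called 4 members for D542G over WT in giredestrant Basal cells (2 reported), 1 for the difference of giredestrant effects between D542G and WT in Basal cells (0), 4 for Y541S over WT in vehicle Basal cells (0), 2 for D542G over WT in LP cells (0), 14 for N over ML (9) and 1 for LP over ML (0). Without the filter, 1 was called for D542G over WT in giredestrant Basal cells and 1 in LP cells. With all 51 libraries in the fit, 1 was called for D542G over WT in giredestrant Basal cells, 1 for the difference of effects between Y541S and WT in Basal cells (3 reported), 5 for D542G and 3 for Y541S over WT in LP cells. Without Y541S giredestrant ML numbers 1 and 2 together, which leaves number 3 alone in its arm with its spread assumed to be like that of the other groups, 3 were called for giredestrant over vehicle in Y541S ML cells (6), 1 for Y541S over WT in giredestrant ML cells (5), 0 for the difference of effects between Y541S and WT in ML cells (6) and 5 for N over ML.

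With the replicate number as a block, 1 member was called for D542G over WT in giredestrant ML cells (3 without it) and 1 for LP over ML (0), and the other 26 counts stayed within 1.5 times. A block nested in genotype and treatment, added after seeing the data, called 14 for N over ML and 1 for LP over ML. Treatments and genotypes share only a number, and their same-numbered libraries did not deviate together in most pairs.

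With 1 library left out at a time, giredestrant over vehicle gave 3 to 5 called members in D542G, 2 to 7 in Y541S and 10 to 17 in WT ML cells, and 3 to 14, 1 to 3 and 1 to 9 in Basal cells of the same genotypes. D542G over WT gave 5 to 9 with vehicle and 0 to 2 with giredestrant in ML cells, and 0 to 2 with giredestrant in Basal cells. Y541S over WT gave 3 to 9 with vehicle and 1 to 6 with giredestrant in ML cells, and 4 to 8 with giredestrant in Basal cells. The difference of effects gave 2 to 6 for D542G and 1 to 7 for Y541S in ML cells, and 1 to 5 for Y541S in Basal cells. N gave 6 to 13 over ML, 7 to 14 over LP and 10 to 12 over Basal cells, and Y541S over D542G 0 to 3 in N cells. ML over Basal cells gave 12 to 17 with vehicle and 11 to 15 with giredestrant, LP over ML 0 to 2 and LP over Basal 8 to 13.

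Groups of 3 libraries limit the precision of all calls, and members near 1 CPM, such as Idi1 and Fdps, also rest on few counts. Over all called members and single omissions, the call was lost 341 times and kept 955 times.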
